A study of Mus musculus with 32 samples.

Results

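The comparison described here set neurons induced from mouse embryonic stem cells against the stem cells themselves, in the control genotype only. Its members were chosen by label: the rRNA-depleted RNA libraries of the Mirg(fl/+) induced neurons (iNs, replicates A to C) and of the Mirg(fl/+) embryonic stem cells (ESCs, replicates A to C), which made 6 of the 32 samples of the series. Every gene was considered, and 17247 of the 52636 gene entries had enough counts to be tested. The series as a whole examined a maternally expressed microRNA cluster in these cells, and the libraries with the deletion of that cluster are used only for a count of repeated calls and in 1 alternative fit over all RNA libraries. The iNs were collected on day 10 of a culture in neuron differentiation medium, in which doxycycline switched on a TetO-Ngn2 transgene, which encodes the proneural factor Neurog2. The ESCs were hybrid mouse cells at day 0, kept in medium with 10% serum and LIF. Both groups carried the floxed Mirg allele, so neither is wild type, and the labels do not say whether the replicates came from separate cultures or clones. The p-values therefore measure only the spread between these libraries.

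A proneural basic helix-loop-helix factor such as Neurog2 drives progenitors to leave the cell cycle and turn on neuronal genes, and forced expression of it in pluripotent cells gives neurons within days. Pluripotent stem cells are an epithelium-like tissue: they divide fast, hold together through E-cadherin, tight junctions and gap junctions, and rely on glycolysis, one-carbon metabolism and nucleotide synthesis. Neurons are postmitotic, carry long processes, pump ions and release transmitter, and are specified by layers of homeodomain, zinc finger and nuclear receptor factors. The lists below follow these roles, from nuclear regulators through metabolism, receptors and adhesion to the markers of other cell types.

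The iN libraries held 14904735, 20965472 and 17073837 counts and the ESC libraries 21499106, 16644144 and 19002593. At this depth 7571 of the 17247 genes tested rose (43.9%) and 7781 fell (45.1%), at an adjusted p under 0.05 (edgeR quasi-likelihood test, Benjamini-Hochberg adjustment). Since 89.0% of all genes were called, a call alone says little, and a large change is defined here as a call of at least 4-fold. By that rule 3585 genes rose (20.8%) and 3193 fell (18.5%), and these shares are the background against which each list is read. The median log2 fold change over all genes tested was −0.03. Values are counts per 1000000 of the scaled library size (CPM), given for libraries A, B and C in that order. A log2 fold change is followed by an approximate standard error (SE, 3 libraries per group). This SE is the size of the change divided by the square root of the F statistic of the test. Where a group held only a few counts, this SE is smaller than counting error alone, and the change is less certain than it implies. Each gene named below as changed at least 4-fold had no overlap between the iN and ESC libraries and an adjusted p of at most 0.00022 (edgeR quasi-likelihood test, Benjamini-Hochberg adjustment). Genes named with a smaller change were called at an adjusted p of at most 0.0483 in the same test. Over all 17247 genes tested, 15455 (89.6%) had no overlap between the groups, so separation of the libraries is the usual case here and sets no gene apart. Where a group had no count, the change is a lower bound set by 3 counts over its libraries, and where it had 1 to 3 counts the ratio is given with an exact counting interval. A gene that passed the filter on low counts through the libraries of 1 group had to differ, so the counts of changed members describe a list and are not a test of it. In bulk RNA, fewer cells of a type and less RNA per cell cannot be told apart.

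The labels were checked against defining genes. Dcx, a microtubule-binding protein of young neurons, had 1355, 1157 and 1147 CPM in iNs, against 0.662, 0.731 and 1.38 CPM in ESCs (log2 fold change 10.36 ± 0.15). Slc17a6, the vesicular glutamate transporter Vglut2, had 126, 131 and 135 CPM in iNs, against 0.378, 0.426 and 1.01 CPM in ESCs (log2 fold change 7.74 ± 0.15). Neurog2 had 211, 216 and 240.0 CPM in iNs, against 8.46, 10.2 and 9.0 CPM in ESCs (log2 fold change 4.60 ± 0.08), a value in which the endogenous gene and the transgene cannot be told apart. In all of these genes every iN library lay above every ESC library. Gad2, which makes the transmitter GABA, Th, which makes catecholamines, Chat and Slc6a4 stayed below the filter. Their highest values in any iN library were 0.174 CPM for Gad2, 0.197 CPM for Th, 0.476 CPM for Chat and 0.197 CPM for Slc6a4. Other transmitter markers of the same set, Gad1, Slc18a3, Slc5a7 and Slc17a7, are not reported here. The levels given therefore do not settle which transmitters the iNs use. Mirg, the host transcript of the floxed cluster, was present in all 6 libraries, with 29.9, 32.6 and 37.5 CPM in iNs, against 44.1, 40.9 and 42.0 CPM in ESCs (log2 fold change −0.34 ± 0.08).

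**Figure D1:**
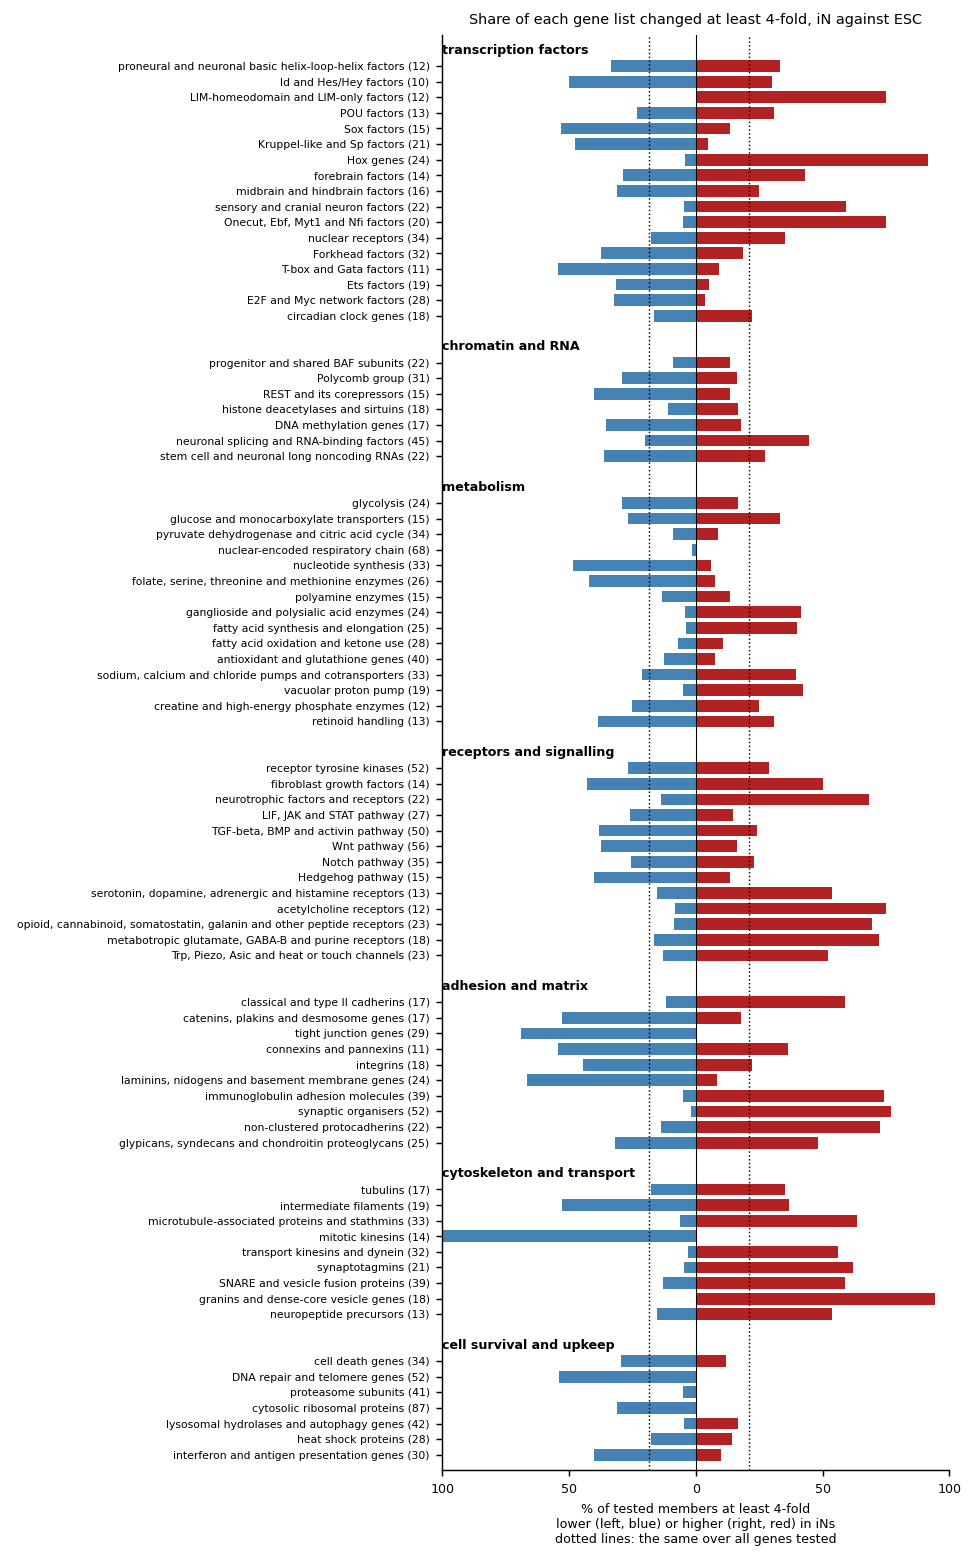
Share of the tested members of each gene list that were at least 4-fold higher in iNs (red, to the right) or at least 4-fold lower (blue, to the left), in percent; the number of members tested is in parentheses and the dotted lines mark 20.8% and 18.5%, the shares over all genes tested. All 14 mitotic kinesins lie to the left, and 17 of 18 granin and dense-core vesicle genes lie to the right.

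Among nuclear regulators, most tested members of the sensory, LIM, Hox and Onecut to Nfi lists rose, and more members of the Klf, Sox and Fox lists fell than rose. Of 27 proneural and neuronal basic helix-loop-helix genes listed, 12 were tested, of which 4 rose and 4 fell by at least 4-fold. Nhlh2 and Nhlh1, 2 closely related factors of newly formed neurons, were both among the risen members. Nhlh2 had 28.2, 21.1 and 27.1 CPM in iNs, against 0, 0.0609 and 0.0532 CPM in ESCs (706-fold higher, 95% counting interval 195 to 5832). Nhlh1 had 83.0, 86.2 and 71.3 CPM in iNs, against 0.284, 0.183 and 0.319 CPM in ESCs (log2 fold change 8.20 ± 0.16). Every iN library lay above every ESC library for both. Bhlhe22, a neuronal repressor, had 5.51, 7.19 and 7.07 CPM in iNs, against 0.473, 0.365 and 0.958 CPM in ESCs (log2 fold change 3.44 ± 0.26). Ascl2, a factor of trophoblast and gut stem cells, fell (102-fold lower, 95% counting interval 17.8 to 4048), and so did Tcf3, an E protein that pairs with proneural factors (log2 fold change −2.12 ± 0.08). Its relative Tcf4 rose by less than 4-fold (log2 fold change 0.87 ± 0.07). The list median, 0.57, turned negative when an iN library was left out, at −0.46 without A, −0.66 without B and −0.56 without C.

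CAGATG is an E-box, a sequence that proneural factors such as Neurog2 are known to bind. The promoters of Nhlh2 and Nhlh1 are shown because, among the risen members of this list that were searched, these 2 had the E-box. They run from 250 bases before to 50 after the start of transcription, are from RefSeq (GRCm38.p6), and are printed 5′ to 3′ on the gene's own strand with the E-box in capitals. Nhlh2 lies on chromosome 3 (chr3:102009895-102010194, plus strand), with its E-box 127 bases before the start. Nhlh1 lies on chromosome 1 (chr1:172057547-172057846, minus strand), with its E-box 203 bases before the start.
Nhlh2: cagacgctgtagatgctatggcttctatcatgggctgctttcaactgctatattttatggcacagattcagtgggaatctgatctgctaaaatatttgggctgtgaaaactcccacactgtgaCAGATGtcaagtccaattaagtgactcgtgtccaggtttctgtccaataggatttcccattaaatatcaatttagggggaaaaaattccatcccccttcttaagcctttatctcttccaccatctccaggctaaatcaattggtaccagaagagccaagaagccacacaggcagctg
Nhlh1: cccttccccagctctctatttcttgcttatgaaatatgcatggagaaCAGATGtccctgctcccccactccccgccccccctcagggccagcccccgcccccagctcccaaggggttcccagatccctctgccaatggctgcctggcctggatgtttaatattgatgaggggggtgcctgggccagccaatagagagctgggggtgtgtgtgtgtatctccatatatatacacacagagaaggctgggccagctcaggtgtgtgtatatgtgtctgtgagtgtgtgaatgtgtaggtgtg

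CAGATG was searched on both strands, CATCTG being its reverse complement. Of the 7 risen members of the list, 5 had a promoter that was searched and 2 had a match. Promoters on chromosome 18 were left out of this search of list members, so a member there was not examined. The letters were present in 13.3% of the 3105 promoters of genes at least 4-fold higher in iNs and in 11.6% of the 2480 promoters of genes at least 4-fold lower, against 11.5% of the 14640 promoters of all genes tested and 17.2% of all 32851 promoters in the table. A match is a description of the letters in this window, not a binding site.

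The Id proteins lack a DNA-binding region and block E proteins, and the Hes proteins are Notch-driven repressors. They split in direction. Id4 had 172, 148 and 157 CPM in iNs, against 4.92, 4.75 and 6.87 CPM in ESCs (log2 fold change 4.85 ± 0.11), with all iN libraries high. Id1 had 2.82, 3.24 and 2.66 CPM in iNs, against 52.4, 60.1 and 54.4 CPM in ESCs (log2 fold change −4.24 ± 0.10). Id3 had 0.197, 0.286 and 0.174 CPM in iNs, against 30.1, 30.6 and 26.6 CPM in ESCs (log2 fold change −6.98 ± 0.17). For both, the iN libraries were the low ones. Hes1 had 0.919, 0.286 and 0.695 CPM in iNs, against 9.78, 12 and 11.4 CPM in ESCs (log2 fold change −4.18 ± 0.25). Hey2 (log2 fold change 3.27 ± 0.26) went up and Bhlhe40, a clock-linked repressor, went down (log2 fold change −2.54 ± 0.11). Of 10 members tested of 16 listed, 3 rose and 5 fell by at least 4-fold.

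Factors of spinal, cranial and sensory neurons were among the strongest in iNs. Of 24 listed, 22 were tested, 13 rose and 1 fell by at least 4-fold (median log2 fold change 2.93, against −0.03 over all genes), and their summed level was 1239 to 1244 CPM in iNs, against 228 to 244 CPM in ESCs. Tlx3, a factor of glutamatergic sensory relay neurons, had 62.3, 67.1 and 72.1 CPM in iNs, against 0.0473, 0.183 and 0.160 CPM in ESCs (log2 fold change 9.0 ± 0.18), and Prrxl1, a factor of pain-sensing neurons and their targets, rose too (log2 fold change 8.75 ± 0.21). In these genes the ESC libraries stayed below 1 CPM. Isl2, a LIM-homeodomain factor of motor and sensory neurons, had 92.3, 107 and 96.7 CPM in iNs, against 0.189, 0.365 and 0.160 CPM in ESCs (log2 fold change 8.70 ± 0.15). Its relative Isl1 had 111, 104 and 95.9 CPM in iNs, against 0.425, 0.183 and 0.479 CPM in ESCs (log2 fold change 8.09 ± 0.15). Pou4f1, which marks sensory ganglia, had 90.2, 91.4 and 90.1 CPM in iNs, against 2.65, 3.29 and 2.13 CPM in ESCs (log2 fold change 5.08 ± 0.10). The groups stood far apart in all of these. Hand2, a factor of sympathetic neurons and heart, rose (log2 fold change 5.89 ± 0.36), while Six4 (log2 fold change −1.21 ± 0.06) and Gata3 (log2 fold change −2.54 ± 0.41) fell. These factors belong to neuron types that do not normally share all of them in 1 cell, and whether they were in the same cells here was not tested.

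Among 18 LIM genes listed, 12 were tested, 9 rose at least 4-fold and 0 fell (1 without iN library A, without iN library C or without ESC library B). Lmo1, a LIM-only cofactor, had 11.6, 13.6 and 12.2 CPM in iNs, against 0.567, 0.792 and 0.532 CPM in ESCs (log2 fold change 4.31 ± 0.18), whereas Lhx2 (log2 fold change 2.70 ± 0.28), Lhx1 (log2 fold change 2.42 ± 0.35) and Lmo2 (log2 fold change 2.25 ± 0.23) rose less. The POU family parted by role. Pou5f1 (Oct4), a core factor of pluripotency, had 0.853, 1.52 and 0.695 CPM in iNs, against 589, 558 and 551 CPM in ESCs (log2 fold change −9.05 ± 0.13). Pou3f1, which primed pluripotent cells and Schwann cells use, fell (log2 fold change −3.68 ± 0.09) while its relative Pou3f2 (Brn2) rose (log2 fold change 3.51 ± 0.36). Pou2f3 fell as well (226-fold lower, 95% counting interval 40.1 to 8958). Of 13 POU genes tested, 4 rose and 3 fell by at least 4-fold, 2 were not called, and the summed level was lower in iNs (225 to 232 CPM) than in ESCs (857 to 877 CPM).

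The Onecut, Ebf, Myt1, Scratch and Nfi families, many of whose members act in neurons after they leave the cell cycle, held 15 members of 20 tested that rose at least 4-fold (1 fell, 2 not called, median log2 fold change 4.81). Onecut2 had 579.8, 521 and 543 CPM in iNs, against 4.40, 3.65 and 5.64 CPM in ESCs (log2 fold change 6.90 ± 0.11). Onecut3 had 13.7, 18.2 and 15.4 CPM in iNs, against 0.0473, 0.0609 and 0 CPM in ESCs (451-fold higher, 95% counting interval 124 to 3730.2). Myt1l, a zinc finger repressor of non-neuronal genes, had 72.9, 75.1 and 78.4 CPM in iNs, against 0.284, 0.365 and 0.266 CPM in ESCs (log2 fold change 7.93 ± 0.12). Scrt2 (log2 fold change 7.13 ± 0.17) and Scrt1 (log2 fold change 6.69 ± 0.19), the Scratch repressors of neurons, rose with them. All iN libraries lay above all ESC libraries in these genes. Nfib went the other way, with 1.05, 0.667 and 1.04 CPM in iNs, against 36.5, 35.8 and 42.3 CPM in ESCs (log2 fold change −5.40 ± 0.15). Nfib is also known from progenitors and glia.

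Hox genes, the homeodomain factors that mark position along the body axis, were near zero in ESCs, and most of those tested were higher in iNs. Of 39 listed, 24 were tested, of which 22 rose and 1 fell by at least 4-fold (0 fell without ESC library A, and the median log2 fold change was 4.45). No Hox gene reached 1 CPM in every ESC library, and 19 did in every iN library. All were low even in iNs, where the summed level of the list was 76.9 to 88.2 CPM, against 6.79 to 7.57 CPM in ESCs. Hoxa5 had 4.99, 5.10 and 6.14 CPM in iNs, against 0 in each ESC library (at least 102-fold higher). Hoxb7 had 8.07, 7.48 and 7.30 CPM in iNs, against 0.0945, 0.183 and 0 CPM in ESCs (log2 fold change 6.32 ± 0.34). Hoxd1 had 6.5, 7.53 and 8.23 CPM in iNs, against 0.142, 0.304 and 0.213 CPM in ESCs (log2 fold change 5.08 ± 0.25). Hoxb5 (73.1-fold higher, 95% counting interval 24.7 to 357), Hoxb8 (log2 fold change 5.17 ± 0.30) and Hoxc4 (log2 fold change 5.33 ± 0.49) rose too, and members of all 4 clusters were among the risen genes.

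Brain regional factors did not move as a block. Of 14 forebrain factors tested of 28 listed, 6 rose and 4 fell by at least 4-fold. Dlx2, a factor of GABAergic forebrain neurons, had 13.1, 12.2 and 11.8 CPM in iNs, against 0.520, 0.122 and 0.266 CPM in ESCs (log2 fold change 5.25 ± 0.24), and its neighbour Dlx1 rose too (log2 fold change 6.10 ± 0.43). Otx2, which marks both primed pluripotent cells and the anterior brain, had 0.591, 0.238 and 0.348 CPM in iNs, against 58.5, 57.1 and 55.4 CPM in ESCs (log2 fold change −7.22 ± 0.15). Eomes (566-fold lower, 95% counting interval 156 to 4676) and Bcl11b (158-fold lower, 95% counting interval 28.1 to 6297) were close to 0 in iNs. Of 16 midbrain and hindbrain factors tested of 26, 4 rose and 5 fell by at least 4-fold. Phox2a, a homeodomain factor of hindbrain neurons, had 57.4, 61.2 and 57.1 CPM in iNs, against 1.94, 1.77 and 2.29 CPM in ESCs (log2 fold change 4.87 ± 0.10). Irx5 (log2 fold change 4.97 ± 0.18) and Irx3 (log2 fold change 4.64 ± 0.18) rose, whereas En2 (log2 fold change −3.92 ± 0.26) and Gbx2 (log2 fold change −3.73 ± 0.18) fell.

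In the families with many stem cell members, more members fell than rose by at least 4-fold. Of 21 Kruppel-like and Sp factors tested, 10 fell and 1 rose by at least 4-fold. Klf2, Klf4 and Klf5, a trio that sustains naive pluripotency, were all low in iNs. Klf2 had 0.722, 1.52 and 0.695 CPM in iNs, against 142, 154 and 141 CPM in ESCs (log2 fold change −7.14 ± 0.14). Klf4 had 0.394, 0.238 and 0.116 CPM in iNs, against 47.3, 55.2 and 50.7 CPM in ESCs (log2 fold change −7.67 ± 0.18). Klf5 had 0.460, 0.381 and 0.695 CPM in iNs, against 112, 119.8 and 104 CPM in ESCs (log2 fold change −7.77 ± 0.13). The Kruppel-like factor that rose at least 4-fold was another one. Klf7, which sensory neurons use, had 415, 436 and 435 CPM in iNs, against 40.5, 41.0 and 39.8 CPM in ESCs (log2 fold change 3.41 ± 0.06). Of 15 Sox factors tested, 8 fell and 2 rose by at least 4-fold, while by calls of any size 8 fell and 7 rose. The summed level of the Sox list was 505 to 536 CPM in iNs, against 463 to 490 CPM in ESCs. Sox15, a close relative of Sox2 in stem cells, fell (295-fold lower, 95% counting interval 52.6 to 11694), as did the neural progenitor factors Sox21 (log2 fold change −5.94 ± 0.35) and Sox1 (32.6-fold lower, 95% counting interval 10.8 to 161). Sox13 fell with them (log2 fold change −3.68 ± 0.12), whereas Sox5 rose. Sox5 had 4.07, 3.81 and 4.17 CPM in iNs, against 0.236, 0.365 and 0.479 CPM in ESCs (log2 fold change 3.47 ± 0.26).

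Forkhead genes fell in 12 and rose in 6 of 32 tested by the 4-fold rule. Foxh1, the DNA-binding partner of nodal signals, had 0, 0 and 0.0579 CPM in iNs, against 28.4, 28.3 and 29.0 CPM in ESCs (1527-fold lower, 95% counting interval 274 to 60346). Foxd3, a factor of stem cells and neural crest, had 0, 0.0476 and 0.0579 CPM in iNs, against 23.1, 26.4 and 24.5 CPM in ESCs (656-fold lower, 95% counting interval 181 to 5424). Foxo1, which insulin signalling controls, fell (log2 fold change −5.12 ± 0.11). Foxd2 rose, with 7.09, 6.67 and 6.55 CPM in iNs, against 0.0473, 0.0609 and 0 CPM in ESCs (190.2-fold higher, 95% counting interval 52.3 to 1577), and Foxl2 rose too (log2 fold change 4.0 ± 0.33). T-box and Gata factors of mesoderm, endoderm and blood fell in 8 of 11 tested and rose in 3, with 6 and 1 past 4-fold. The mesoderm gene T (Brachyury) had 0 CPM in each iN library, against 7.94, 8.71 and 8.84 CPM in ESCs (at least 151-fold lower). Tbx2 had 17.1, 20.7 and 20.3 CPM in iNs, against 0.142, 0.183 and 0 CPM in ESCs (log2 fold change 7.42 ± 0.28), the 1 member of the list that rose at least 4-fold. Among 19 Ets factors tested, 6 fell and 1 rose by at least 4-fold, the 1 that rose so far being Etv1, which proprioceptive neurons use, with 327, 322 and 355 CPM in iNs, against 51.4, 49.2 and 58.0 CPM in ESCs (log2 fold change 2.66 ± 0.07).

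Nuclear receptors, factors that respond to hormones and lipids, changed in both directions. Of 34 tested of 49 listed, 12 rose and 6 fell by at least 4-fold. The estrogen-related receptors stood in opposite order. Esrrg had 30.7, 27.3 and 24.6 CPM in iNs, against 0.614, 0.426 and 0.532 CPM in ESCs (log2 fold change 5.67 ± 0.17). Esrrb, a naive pluripotency factor, had 4.79, 5.48 and 5.97 CPM in iNs, against 257, 254 and 256 CPM in ESCs (log2 fold change −5.55 ± 0.08). Thra, the thyroid hormone receptor alpha, had 125, 149 and 132 CPM in iNs, against 4.44, 3.90 and 4.85 CPM in ESCs (log2 fold change 4.94 ± 0.10). Rarb, a retinoic acid receptor, rose (log2 fold change 5.05 ± 0.22) and so did Ppara (log2 fold change 4.87 ± 0.31). Nr0b1 (Dax1), a stem cell corepressor, had 0.0656, 0.0953 and 0 CPM in iNs, against 40.7, 47.1 and 48.4 CPM in ESCs (805-fold lower, 95% counting interval 275 to 3905). The E2F and Myc network, which drives entry into the cell cycle, fell in 20 and rose in 7 of 28 tested, with 9 and 1 past 4-fold. Mybl2 had 1.12, 0.619 and 0.348 CPM in iNs, against 346, 322 and 332 CPM in ESCs (log2 fold change −8.94 ± 0.14). E2f8 had 0, 0.143 and 0 CPM in iNs, against 57.8, 52.9 and 51.5 CPM in ESCs (968-fold lower, 95% counting interval 331 to 4695). Mxd4, a Max partner that opposes Myc, was the 1 that rose at least 4-fold, with 27.3, 35.3 and 36.5 CPM in iNs, against 4.44, 5.05 and 5.59 CPM in ESCs (log2 fold change 2.72 ± 0.13). The pocket protein Rbl1 fell (log2 fold change −4.70 ± 0.21). Of 18 circadian clock genes, 4 rose and 3 fell by at least 4-fold. Npas2, a Clock paralog of brain, had 5.38, 4.53 and 4.69 CPM in iNs, against 0.520, 0.244 and 0.319 CPM in ESCs (log2 fold change 3.68 ± 0.25). Per2 rose (log2 fold change 2.25 ± 0.20), and Cry1 (log2 fold change −2.26 ± 0.13) and Nr1d2 (log2 fold change −2.56 ± 0.09) fell.

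**Figure D2:**
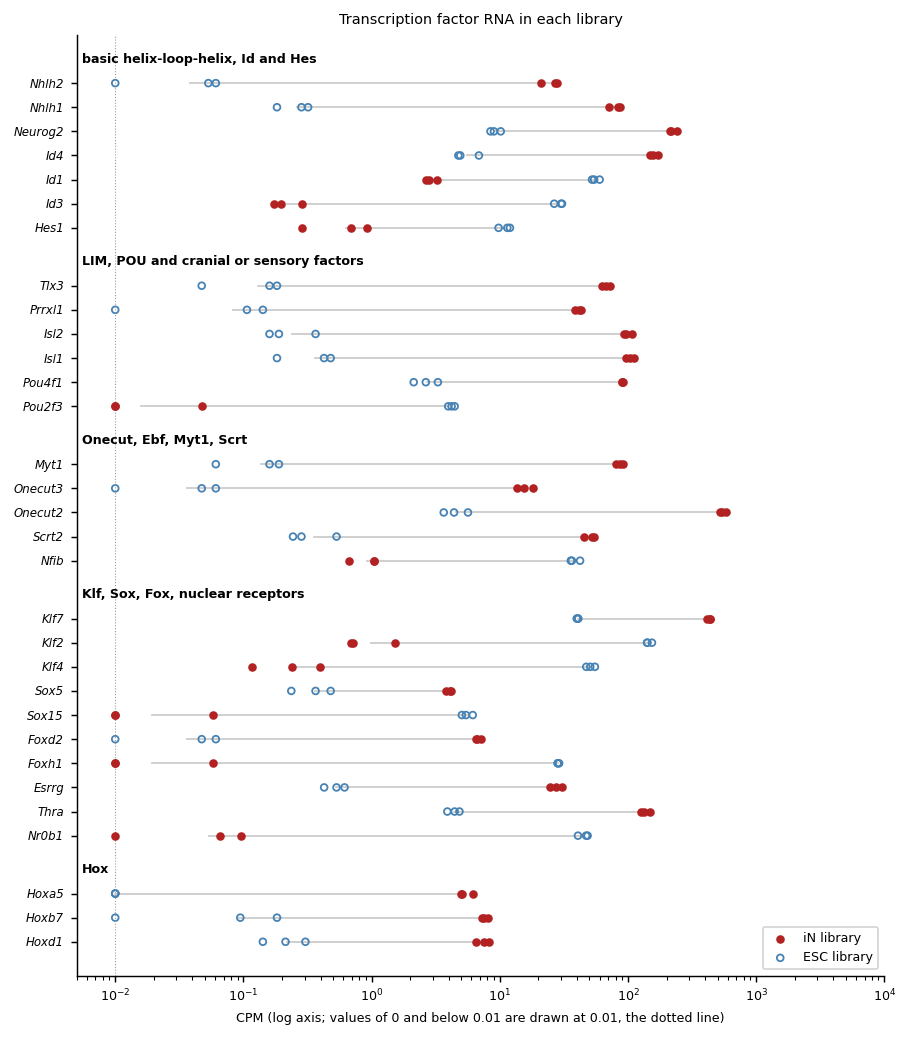
CPM of named transcription factors in each library on a log axis, with filled red points for the 3 iN libraries, open blue points for the 3 ESC libraries and a grey line between the group means; values of 0 and below 0.01 are drawn at 0.01. The 2 groups do not overlap in any gene shown, with Id4 and Klf7 to the right in iNs and Id3, Nfib and Klf4 to the left.

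Within chromatin complexes, some subunits rose while others fell. The BAF remodelling complex is known to swap subunits when progenitors become neurons. All 4 neuron-specific subunits listed rose, 3 of them at least 4-fold. Actl6b (BAF53b) had 17.1, 20.1 and 19.6 CPM in iNs, against 0 in each ESC library (at least 359-fold higher). Its progenitor counterpart Actl6a (BAF53a) had 13.1, 17.5 and 12.4 CPM in iNs, against 142, 134 and 133 CPM in ESCs (log2 fold change −3.24 ± 0.10). Dpf3, of the neuronal complex, rose (log2 fold change 4.57 ± 0.26). Ss18l1 (CREST) had 42.2, 43.8 and 43.4 CPM in iNs, against 6.52, 6.09 and 7.13 CPM in ESCs (log2 fold change 2.71 ± 0.08). Its counterpart Ss18 had 22.0, 20.1 and 21.2 CPM in iNs, against 141, 135 and 132 CPM in ESCs (log2 fold change −2.69 ± 0.06). Of 22 progenitor and shared subunits, 3 rose and 2 fell by at least 4-fold, and 4 were not called. These 4-fold shares, 13.6% and 9.09%, were below those over all genes tested, 20.8% and 18.5%. The ATPase Smarca2 rose (log2 fold change 2.72 ± 0.10) with Smarcc2 (log2 fold change 2.61 ± 0.08).

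REST, the repressor that keeps neuronal genes silent outside neurons, fell with part of its machinery. Rest had 4.07, 5.10 and 5.39 CPM in iNs, against 614, 616 and 653 CPM in ESCs (log2 fold change −7.0 ± 0.09). Its phosphatase partner Ctdsp1 fell (log2 fold change −4.22 ± 0.16), as did Hdac1 (log2 fold change −2.76 ± 0.06) and Sin3a (log2 fold change −2.32 ± 0.06), while Rcor3 (log2 fold change 2.75 ± 0.08) rose. Of 15 genes in this list, 6 fell and 2 rose by at least 4-fold. Polycomb genes changed in both directions, with 9 lower and 5 higher by at least 4-fold of 31. Cbx8, a chromobox reader, rose (log2 fold change 5.21 ± 0.19). Among the accessory subunits of stem cells, Epop had 7.94, 8.53 and 7.30 CPM in iNs, against 289, 329.5 and 288 CPM in ESCs (log2 fold change −5.25 ± 0.09), and Phf19 fell (log2 fold change −5.71 ± 0.15). Of the deacetylases and sirtuins, 3 of 18 rose and 2 fell by at least 4-fold (16.7% and 11.1%, both below the shares over all genes tested). Hdac11 rose (log2 fold change 4.13 ± 0.16) and Sirt1 fell (log2 fold change −3.06 ± 0.09). In DNA methylation, 6 of 17 genes fell and 3 rose by at least 4-fold. The de novo methyltransferase Dnmt3b had 0.328, 0.476 and 0.348 CPM in iNs, against 529, 532 and 510.5 CPM in ESCs (log2 fold change −10.36 ± 0.10), its cofactor Dnmt3l fell (log2 fold change −9.66 ± 0.10), and the reader Zbtb4 rose (log2 fold change 4.57 ± 0.12).

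Splicing and RNA-binding factors rose in 20 and fell in 9 of 45 tested by the 4-fold rule. Celf6 had 54.7, 60.0 and 61.4 CPM in iNs, against 0.142, 0.122 and 0.0532 CPM in ESCs (log2 fold change 9.02 ± 0.16). Rbfox1, a neuronal splicing factor, had 26.1, 28.7 and 29.4 CPM in iNs, against 0.189, 0.365 and 0.213 CPM in ESCs (log2 fold change 6.78 ± 0.17), and Celf3 rose as well (log2 fold change 7.30 ± 0.18). The epithelial splicing regulators went down: Esrp1 had 0.131, 0.0953 and 0.116 CPM in iNs, against 129.7, 129.6 and 131 CPM in ESCs (log2 fold change −10.09 ± 0.12), and Esrp2 fell too (359-fold lower, 95% counting interval 123 to 1744). Groups did not overlap in any of these genes. Long noncoding RNAs were split, with 6 higher and 8 lower by at least 4-fold of 22 tested. Snhg11, abundant in brain, had 439, 404 and 554 CPM in iNs, against 20.9, 18.9 and 20.5 CPM in ESCs (log2 fold change 4.53 ± 0.12). Lncenc1, a stem cell transcript, had 2.30, 1.14 and 1.10 CPM in iNs, against 126, 142 and 140.1 CPM in ESCs (log2 fold change −6.53 ± 0.15). Neat1, the scaffold of paraspeckles, had 3.22, 3.72 and 3.48 CPM in iNs, against 105, 87.0 and 98.7 CPM in ESCs (log2 fold change −4.79 ± 0.10). Sox2ot (log2 fold change −5.70 ± 0.28) and Tsix (log2 fold change −7.98 ± 0.26) fell as well. Both overlap another gene, Sox2 in the case of Sox2ot and, on the opposite strand, Xist in the case of Tsix. The strand setting is not given in the sources used here, so reads of Tsix and Xist cannot be told apart with certainty, and the counts of both noncoding RNAs are uncertain.

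Glucose metabolism changed isozymes. The summed RNA of 32 listed glycolysis genes was 4700.1 to 5341 CPM in iNs, against 9274 to 9996 CPM in ESCs, and of 24 tested 4 rose and 7 fell by at least 4-fold. Eno2, the neuronal enolase, had 166, 196 and 186 CPM in iNs, against 2.41, 1.46 and 1.97 CPM in ESCs (log2 fold change 6.52 ± 0.12). Hexokinase 2 (Hk2), the isozyme of fast-growing cells, had 3.28, 3.29 and 2.38 CPM in iNs, against 141, 129.8 and 127 CPM in ESCs (log2 fold change −5.47 ± 0.10). The neuronal enolase was thus high in iNs and Hk2 high in ESCs. Pfkfb4, which sets the level of a phosphofructokinase activator, had 19.5, 22.2 and 19.5 CPM in iNs, against 2.46, 1.64 and 2.08 CPM in ESCs (log2 fold change 3.29 ± 0.14), while Pfkl, the liver-type phosphofructokinase, fell (log2 fold change −2.84 ± 0.06). Ldha, which makes lactate, had 162, 170.1 and 152 CPM in iNs, against 962, 924 and 895 CPM in ESCs (log2 fold change −2.52 ± 0.06), while Ldhb was not called (log2 fold change 0.09 ± 0.08, adjusted p = 0.286, edgeR quasi-likelihood test, Benjamini-Hochberg adjustment). Counts of Eno1 are uncertain because it shares reads with the near-identical copy Eno1b. Transporters changed as well, with 5 higher and 4 lower by at least 4-fold of 15. Slc16a7, the monocarboxylate transporter MCT2 of neurons, had 125, 103 and 112 CPM in iNs, against 0.662, 0.852 and 0.958 CPM in ESCs (log2 fold change 7.10 ± 0.13). Slc2a1 (Glut1) had 8.60, 8.81 and 5.39 CPM in iNs, against 334, 328 and 330.1 CPM in ESCs (log2 fold change −5.44 ± 0.12). Slc16a3 (MCT4), which exports lactate, had 4.99, 7.10 and 7.07 CPM in iNs, against 115, 114 and 100.3 CPM in ESCs (log2 fold change −4.09 ± 0.11). Slc2a13 (log2 fold change 6.68 ± 0.12) and Slc2a6 (log2 fold change 6.60 ± 0.25) rose.

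Mitochondrial enzymes moved little. In the nuclear-encoded respiratory chain 40 of 68 genes rose, 13 fell and 15 were not called, but 0 rose and 1 fell by at least 4-fold (2 without iN library B or ESC library B), and the median log2 fold change was 0.34. Ndufv3, a subunit of complex I, rose (log2 fold change 1.53 ± 0.08), and Cox7a1, a muscle and heart subunit, fell (log2 fold change −2.54 ± 0.37). Of 34 pyruvate dehydrogenase and citric acid cycle genes, 3 rose and 3 fell by at least 4-fold. The cytosolic isocitrate dehydrogenase Idh1, which yields NADPH, had 369, 397 and 406 CPM in iNs, against 52.2, 49.9 and 53.9 CPM in ESCs (log2 fold change 2.91 ± 0.06). Its mitochondrial counterpart Idh2 had 15, 17.4 and 14.3 CPM in iNs, against 62.2, 63.4 and 63.4 CPM in ESCs (log2 fold change −2.01 ± 0.08). The malic enzyme Me1, another source of NADPH, had 219, 208 and 214 CPM in iNs, against 21.5, 23.4 and 25.4 CPM in ESCs (log2 fold change 3.19 ± 0.07). In each of these the 3 iN libraries stood apart from the 3 ESC libraries.

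Most enzymes that build nucleotides and one-carbon units fell. Of 33 nucleotide synthesis genes, 27 fell, 5 rose and 1 was not called, with 16 lower and 2 higher by at least 4-fold (median log2 fold change −1.85). Rrm2, the S-phase subunit of ribonucleotide reductase, had 2.89, 3.57 and 3.24 CPM in iNs, against 246, 235 and 227 CPM in ESCs (log2 fold change −6.17 ± 0.08), while Rrm2b, the subunit that resting cells use, had 40.7, 44.1 and 46.2 CPM in iNs, against 5.72, 5.91 and 7.08 CPM in ESCs (log2 fold change 2.81 ± 0.10). The thymidine kinases divided in the same way. The cytosolic Tk1 had 0.263, 0.572 and 0.579 CPM in iNs, against 27.3, 30.3 and 27.4 CPM in ESCs (log2 fold change −5.85 ± 0.17). The mitochondrial Tk2 had 28.1, 29.1 and 27.2 CPM in iNs, against 6.14, 6.88 and 6.02 CPM in ESCs (log2 fold change 2.15 ± 0.09). Pfas, of purine synthesis, fell (log2 fold change −4.58 ± 0.06). Of 26 folate, serine, threonine and methionine enzymes, 18 fell, 6 rose and 2 were not called, with 11 lower and 2 higher by at least 4-fold. Tdh, threonine dehydrogenase, on which mouse ESCs are known to depend, had 0.131, 0.0953 and 0.116 CPM in iNs, against 161, 156 and 158 CPM in ESCs (log2 fold change −10.38 ± 0.11). Gldc, of the glycine cleavage system, had 6.10, 7.81 and 7.24 CPM in iNs, against 296, 303 and 289 CPM in ESCs (log2 fold change −5.38 ± 0.08). Aldh1l2, a mitochondrial folate enzyme, was high in iNs, with 128, 124 and 108 CPM in iNs, against 1.89, 2.86 and 3.09 CPM in ESCs (log2 fold change 5.54 ± 0.13). The iN and ESC libraries did not overlap in these enzymes. Odc1, the first enzyme of polyamine synthesis, had 50.1, 57.3 and 39.0 CPM in iNs, against 736, 708 and 721 CPM in ESCs (log2 fold change −3.88 ± 0.11), and its antizyme inhibitor Azin2 rose (log2 fold change 2.19 ± 0.14).

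Many enzymes of membrane lipids rose. Of 24 ganglioside and polysialic acid enzymes, 10 rose and 1 fell by at least 4-fold (2 fell without iN library B, and the median log2 fold change was 1.31). St8sia2, which adds polysialic acid to the adhesion molecule Ncam1, had 93.7, 95.9 and 83.7 CPM in iNs, against 0.567, 1.10 and 0.958 CPM in ESCs (log2 fold change 6.73 ± 0.14). Its partner in that step, St8sia4, had 57.6, 53.4 and 51.9 CPM in iNs, against 1.37, 1.16 and 2.50 CPM in ESCs (log2 fold change 5.0 ± 0.16). St8sia1, which makes the ganglioside GD3, had 85.3, 75.8 and 79.7 CPM in iNs, against 2.79, 1.16 and 1.97 CPM in ESCs (log2 fold change 5.30 ± 0.16). St8sia3 rose too (log2 fold change 5.22 ± 0.10). A4galt (log2 fold change −1.91 ± 0.12) and Fut9 (log2 fold change −1.66 ± 0.13), which makes the stem cell antigen SSEA-1, fell. Of 25 fatty acid synthesis and elongation genes, 10 rose and 1 fell by at least 4-fold. Elovl4, which makes very long chains, had 120.0, 115 and 109 CPM in iNs, against 7.47, 7.18 and 8.41 CPM in ESCs (log2 fold change 3.89 ± 0.08). The desaturase Scd1 had 475, 557 and 664 CPM in iNs, against 64.2, 58.8 and 59.5 CPM in ESCs (log2 fold change 3.21 ± 0.11). Fasn, the fatty acid synthase itself, was not called (log2 fold change 0.11 ± 0.05, adjusted p = 0.0541, edgeR quasi-likelihood test, Benjamini-Hochberg adjustment). For fatty acid oxidation and ketone use 3 of 28 genes rose and 2 fell by at least 4-fold. Bdh1, of ketone use, had 90.6, 107 and 98.4 CPM in iNs, against 12.2, 10.7 and 11.4 CPM in ESCs (log2 fold change 3.10 ± 0.08), and Cpt1a fell (log2 fold change −1.95 ± 0.12).

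Ion pumps and the proton pump of vesicles rose in many members. Of 33 sodium, calcium and chloride pumps and cotransporters, 13 rose and 7 fell by at least 4-fold, and their summed level was 3780.1 to 4077 CPM in iNs, against 1504 to 1562 CPM in ESCs. The plasma membrane calcium pump Atp2b2 had 216, 248 and 278 CPM in iNs, against 1.89, 0.792 and 1.17 CPM in ESCs (log2 fold change 7.54 ± 0.17). Slc8a3, a sodium-calcium exchanger, had 17.6, 18.9 and 19.8 CPM in iNs, against 0.284, 0.122 and 0 CPM in ESCs (log2 fold change 6.98 ± 0.29). Both calcium transporters were near 0 in ESCs. Car10, a carbonic anhydrase relative without enzyme activity that binds neurexins, had 49.8, 52.1 and 62.4 CPM in iNs, against 0.0945, 0.183 and 0.106 CPM in ESCs (log2 fold change 8.71 ± 0.20). Car4, a surface carbonic anhydrase, had 0 CPM in each iN library, against 14.7, 15.3 and 14.7 CPM in ESCs (at least 265-fold lower). Of 19 subunits of the vacuolar proton pump, which acidifies lysosomes and synaptic vesicles, 16 rose, 2 fell and 1 was not called. By the 4-fold rule 8 rose and 1 fell. Atp6v1g2, a brain subunit, had 26.3, 30.6 and 28.8 CPM in iNs, against 0.473, 0.304 and 0.160 CPM in ESCs (log2 fold change 6.46 ± 0.19). Atp6v0a1 had 638, 719.7 and 673 CPM in iNs, against 35.9, 33.4 and 35.5 CPM in ESCs (log2 fold change 4.28 ± 0.07). The epithelial subunit Atp6v0a4 fell (log2 fold change −4.51 ± 0.30).

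Antioxidant genes fell in 22 and rose in 15 of 40 tested, with 5 and 3 past 4-fold. These 4-fold shares, 12.5% and 7.5%, were below those over all genes tested, 18.5% and 20.8%. Gsta4, which clears lipid aldehydes, had 0.722, 0.667 and 0.579 CPM in iNs, against 158, 143 and 151 CPM in ESCs (log2 fold change −7.83 ± 0.10). Gpx2 (log2 fold change −5.90 ± 0.20) and Nqo1 (log2 fold change −4.74 ± 0.20), targets of the factor Nrf2, fell, and Gstm7 (log2 fold change 4.18 ± 0.20) and Mgst3 (log2 fold change 2.76 ± 0.08) rose. Among high-energy phosphate enzymes Ak5, a brain adenylate kinase, had 21.0, 24.1 and 23.6 CPM in iNs, against 0.189, 0.487 and 0.106 CPM in ESCs (log2 fold change 6.49 ± 0.23), Ckmt1, the mitochondrial creatine kinase, rose (log2 fold change 3.03 ± 0.09), and Ak4 fell (log2 fold change −3.42 ± 0.09). In retinoid handling 4 of 13 genes rose and 5 fell by at least 4-fold. Rbp4, which carries retinol in blood, had 8.66, 7.29 and 7.13 CPM in iNs, against 0.142, 0.426 and 0.319 CPM in ESCs (log2 fold change 4.72 ± 0.26). Crabp2, which carries retinoic acid to its receptors, had 0, 0.238 and 0.116 CPM in iNs, against 4.54, 4.69 and 4.26 CPM in ESCs (log2 fold change −5.04 ± 0.37). Rdh11, a retinol dehydrogenase, had 164, 181 and 182 CPM in iNs, against 30.6, 27.5 and 27.7 CPM in ESCs (log2 fold change 2.62 ± 0.07).

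Growth factor receptors changed in both directions. Of 52 receptor tyrosine kinases tested of 58, 15 rose and 14 fell by at least 4-fold, and 4 were not called. Ret, the signalling receptor for GDNF family ligands, had 1501, 1798 and 1658 CPM in iNs, against 2.41, 2.56 and 2.88 CPM in ESCs (log2 fold change 9.30 ± 0.11). Ntrk2 (TrkB), the receptor for BDNF, had 318, 336 and 315 CPM in iNs, against 1.42, 0.974 and 0.958 CPM in ESCs (log2 fold change 8.15 ± 0.10). Ntrk3 (TrkC), for NT-3, had 96.0, 81.8 and 87.2 CPM in iNs, against 0.709, 0.487 and 0.319 CPM in ESCs (log2 fold change 7.41 ± 0.15). All iN libraries were high in these 3 receptors. Epha5 rose (log2 fold change 8.06 ± 0.25), whereas Epha2 had 0.263, 0.286 and 0.348 CPM in iNs, against 136, 133 and 135 CPM in ESCs (log2 fold change −8.78 ± 0.10). Fgfr3 had 0 CPM in each iN library, against 3.78, 3.90 and 4.31 CPM in ESCs (at least 71.2-fold lower), and Epha1 fell as well (1399-fold lower, 95% counting interval 251 to 55286). Among neurotrophic factors and receptors 15 of 22 rose and 3 fell by at least 4-fold. The ligand Gdnf had 13.6, 17.5 and 13.8 CPM in iNs, against 0.0945, 0 and 0.213 CPM in ESCs (log2 fold change 7.05 ± 0.32). The co-receptor Gfra2, which pairs Ret with neurturin, had 52.9, 67.3 and 53.8 CPM in iNs, against 0.898, 0.609 and 0.160 CPM in ESCs (log2 fold change 6.66 ± 0.23). Its ligand Nrtn had 0.591, 0.238 and 0.521 CPM in iNs, against 2.08, 2.98 and 2.24 CPM in ESCs (log2 fold change −2.46 ± 0.33). Sorcs1, a sorting receptor, rose (log2 fold change 8.08 ± 0.18). Cntf overlapped between the groups, with 0.611, 1.33 and 1.27 CPM in iNs, against 2.04, 1.27 and 1.97 CPM in ESCs (log2 fold change −0.70 ± 0.31), and its call was lost without iN library A or C and without ESC library A or C (log2 fold change −0.43 to −0.81), and with the replicate letter as a block (adjusted p = 0.0929, edgeR quasi-likelihood test, Benjamini-Hochberg adjustment).

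Fibroblast growth factors changed in both directions. Of 22 listed, 14 were tested, 7 rose and 6 fell by at least 4-fold. Fgf12, which stays inside the cell and binds sodium channels, had 71.9, 62.9 and 61.3 CPM in iNs, against 0, 0.0609 and 0.0532 CPM in ESCs (1829.9-fold higher, 95% counting interval 506 to 15116). The secreted Fgf15 had 0.0656, 0.286 and 0.116 CPM in iNs, against 38.1, 38.8 and 38.3 CPM in ESCs (log2 fold change −7.78 ± 0.18), Fgf17 fell (1093-fold lower, 95% counting interval 196 to 43217) and Fgf8 fell (122-fold lower, 95% counting interval 33.4 to 1012), while the secreted Fgf9 had 11.9, 11.8 and 9.44 CPM in iNs, against 0.0473, 0.244 and 0.0532 CPM in ESCs (log2 fold change 6.61 ± 0.31). Every iN library exceeded every ESC library for Fgf12 and Fgf9, and the reverse held for Fgf15, Fgf17 and Fgf8.

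Pathways that sustain stem cells lost some ligands and feedback genes and gained others. Of 27 LIF, JAK and STAT genes, 14 rose, 7 fell and 6 were not called, with 4 higher and 7 lower by at least 4-fold. Their summed level was 1662 to 1715 CPM in iNs, against 1022 to 1036.5 CPM in ESCs. Socs3, the feedback inhibitor that LIF induces, had 0.263, 1.0 and 0.406 CPM in iNs, against 35.5, 34.2 and 28.3 CPM in ESCs (log2 fold change −5.76 ± 0.23). Lif itself fell (log2 fold change −4.23 ± 0.23). The cytokine effector Stat2 had 94.3, 118 and 113 CPM in iNs, against 9.74, 10.7 and 10.0 CPM in ESCs (log2 fold change 3.42 ± 0.09), and Stat5b rose (log2 fold change 2.96 ± 0.10). Of 50 TGF-beta, BMP and activin genes, 19 fell and 12 rose by at least 4-fold. The ligand Bmp4 had 0 CPM in each iN library, against 13.9, 12.1 and 12.7 CPM in ESCs (at least 231-fold lower). The nodal antagonist Lefty2 had 0.328, 0.191 and 0.521 CPM in iNs, against 102, 103 and 100.0 CPM in ESCs (log2 fold change −8.21 ± 0.14), and Lefty1 fell (1920.3-fold lower, 95% counting interval 531 to 15862). Gdf11, a ligand that limits neurogenesis in olfactory and spinal tissue, had 163, 184 and 166 CPM in iNs, against 2.88, 2.68 and 3.78 CPM in ESCs (log2 fold change 5.77 ± 0.10). The receptor Acvr1c (Alk7) had no count in ESCs (at least 42.9-fold higher).

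Of 56 Wnt pathway genes, 21 fell and 9 rose by at least 4-fold. Among ligands, Wnt8a (489-fold lower, 95% counting interval 87.3 to 19341) fell, as did Wnt7b (log2 fold change −7.30 ± 0.35). Tcf7l1 (Tcf3 of stem cell work), the repressor of Wnt targets in pluripotency, had 0.197, 0.286 and 0.348 CPM in iNs, against 44.2, 45.1 and 42.2 CPM in ESCs (log2 fold change −7.25 ± 0.14). Lef1 had 0.394, 0.476 and 0.869 CPM in iNs, against 74.4, 69.8 and 71.5 CPM in ESCs (log2 fold change −6.94 ± 0.14). Apc2, the brain relative of the tumour suppressor Apc, had 164, 166 and 175 CPM in iNs, against 2.84, 2.44 and 2.98 CPM in ESCs (log2 fold change 5.93 ± 0.08). Rspo2, which enhances Wnt signals, rose (log2 fold change 5.28 ± 0.28). In the Notch pathway, 9 of 35 genes fell and 8 rose by at least 4-fold. The receptor Notch1 had 1.44, 2.62 and 1.45 CPM in iNs, against 69.5, 72.5 and 67.9 CPM in ESCs (log2 fold change −5.20 ± 0.14), Notch2 fell (log2 fold change −4.71 ± 0.08) and Notch3 fell (log2 fold change −5.67 ± 0.13). Their modifier Lfng fell (log2 fold change −5.54 ± 0.26). Dner, a neuronal Notch ligand of another type, had 175, 176 and 179.9 CPM in iNs, against 2.98, 3.53 and 2.98 CPM in ESCs (log2 fold change 5.81 ± 0.08).

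In the Hedgehog pathway 11 of 15 genes fell and 4 rose, with 6 and 2 past 4-fold. The transducer Smo had 0.788, 0.572 and 1.10 CPM in iNs, against 26.7, 29.3 and 29.1 CPM in ESCs (log2 fold change −5.13 ± 0.16). Gli2, a transcriptional effector, had 0.131, 0.238 and 0.174 CPM in iNs, against 49.2, 55.4 and 51.3 CPM in ESCs (log2 fold change −8.07 ± 0.15). Gli3 had 5.45, 5.67 and 6.02 CPM in iNs, against 59.6, 66.3 and 65.4 CPM in ESCs (log2 fold change −3.48 ± 0.08). All of these lay lower in every iN library, and no iN library held a count of the effector Gli1, itself a readout of the pathway (at least 393-fold lower). Shh, the ligand, had 2.03, 2.43 and 2.38 CPM in iNs, against 0 in each ESC library (at least 43.2-fold higher). Disp2, a relative of the protein that releases it, had 235, 252 and 255 CPM in iNs, against 0.142, 0.183 and 0.0532 CPM in ESCs (log2 fold change 10.88 ± 0.13). The ligand, though at a low level, and the releaser relative were thus higher in iNs. The transducer and all 3 Gli genes were higher in ESCs.

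Most transmitter receptors tested were higher in iNs. Of 29 metabotropic glutamate, GABA-B and purine receptors listed, 18 were tested, 13 rose and 3 fell by at least 4-fold (median log2 fold change 3.41). Grm3, a presynaptic glutamate receptor, had 42.9, 44.8 and 43.5 CPM in iNs, against 0 in each ESC library (at least 824-fold higher). P2rx3, the ATP-gated channel of pain-sensing neurons, had 355, 389 and 321 CPM in iNs, against 0.425, 0.365 and 0.319 CPM in ESCs (log2 fold change 9.87 ± 0.13). Gabbr2, the subunit that makes the GABA-B receptor signal, had 68.8, 76.4 and 79.5 CPM in iNs, against 0.189, 0.244 and 0.266 CPM in ESCs (log2 fold change 8.30 ± 0.14). ESC libraries were low in all of these, as they were for the adenosine receptor Adora2a (log2 fold change 7.70 ± 0.18). Grm6, a receptor of retinal bipolar cells, was high in ESCs instead, with 0, 0 and 0.116 CPM in iNs, against 10.4, 10.5 and 10.9 CPM in ESCs (283-fold lower, 95% counting interval 78.1 to 2344).

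Of 21 acetylcholine receptors, 12 were tested, 9 rose and 1 fell by at least 4-fold (median log2 fold change 5.92, or 4.71 with genes at 0 in a group set at their bound). Chrna3, Chrnb4 and Chrnb2 form the nicotinic receptors of autonomic ganglia and of some brain neurons. Chrna3 had 136, 138 and 141 CPM in iNs, against 0.142, 0.183 and 0.373 CPM in ESCs (log2 fold change 9.19 ± 0.13). Chrnb2 had 146, 161 and 156 CPM in iNs, against 1.42, 1.16 and 1.17 CPM in ESCs (log2 fold change 6.93 ± 0.09). Chrnb4 had 38.4, 40.2 and 36.6 CPM in iNs, against 0.425, 0.548 and 0.479 CPM in ESCs (log2 fold change 6.30 ± 0.13). The muscarinic receptor Chrm3 rose (log2 fold change 6.63 ± 0.21), and Chrna9, of hair cells, had no count in iNs (at least 79.4-fold lower). Among serotonin, dopamine, adrenergic and histamine receptors 13 of 32 were tested, 7 rose and 2 fell by at least 4-fold. Htr1d, a serotonin autoreceptor, had 57.6, 61.5 and 58.8 CPM in iNs, against 0.709, 0.670 and 0.692 CPM in ESCs (log2 fold change 6.41 ± 0.11). Adrb3, an adrenergic receptor of fat, had 0.0656, 0.0953 and 0.0579 CPM in iNs, against 8.41, 8.46 and 7.61 CPM in ESCs (log2 fold change −6.65 ± 0.27). Peptide receptors rose in 21 of 23 tested (45 listed) and fell in 2, with 16 and 2 past 4-fold. Oprl1, the nociceptin receptor, had 38.2, 42.0 and 36.6 CPM in iNs, against 0.331, 0.731 and 0.213 CPM in ESCs (log2 fold change 6.55 ± 0.19). Oprm1, the mu-opioid receptor, had 15.4, 12.1 and 13.6 CPM in iNs, against 0.331, 0.122 and 0.266 CPM in ESCs (log2 fold change 5.74 ± 0.24). Tacr3, a tachykinin receptor, rose (231-fold higher, 95% counting interval 63.7 to 1916), and Calcr fell (log2 fold change −4.93 ± 0.38).

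Channels of touch, heat and acid were part of the change. Of 37 Trp, Piezo, Asic and related genes, 23 were tested, 12 rose and 3 fell by at least 4-fold, and 3 were not called. Piezo2, the touch channel of sensory neurons, had 220.2, 252 and 259 CPM in iNs, against 7.75, 7.43 and 7.56 CPM in ESCs (log2 fold change 5.0 ± 0.08). Piezo1, its widely used relative, had 11.3, 13.5 and 10.8 CPM in iNs, against 147, 145 and 145 CPM in ESCs (log2 fold change −3.61 ± 0.08). The acid-sensing channel Asic2 had 72.7, 79.6 and 74.6 CPM in iNs, against 0.284, 0.304 and 0.106 CPM in ESCs (log2 fold change 8.32 ± 0.15), and Asic4 had no count in ESCs (at least 242-fold higher). Trpm3, a heat channel, rose too (log2 fold change 8.21 ± 0.19). The Piezo genes stood in opposite order in the 2 cell types, without overlap.

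**Figure D3:**
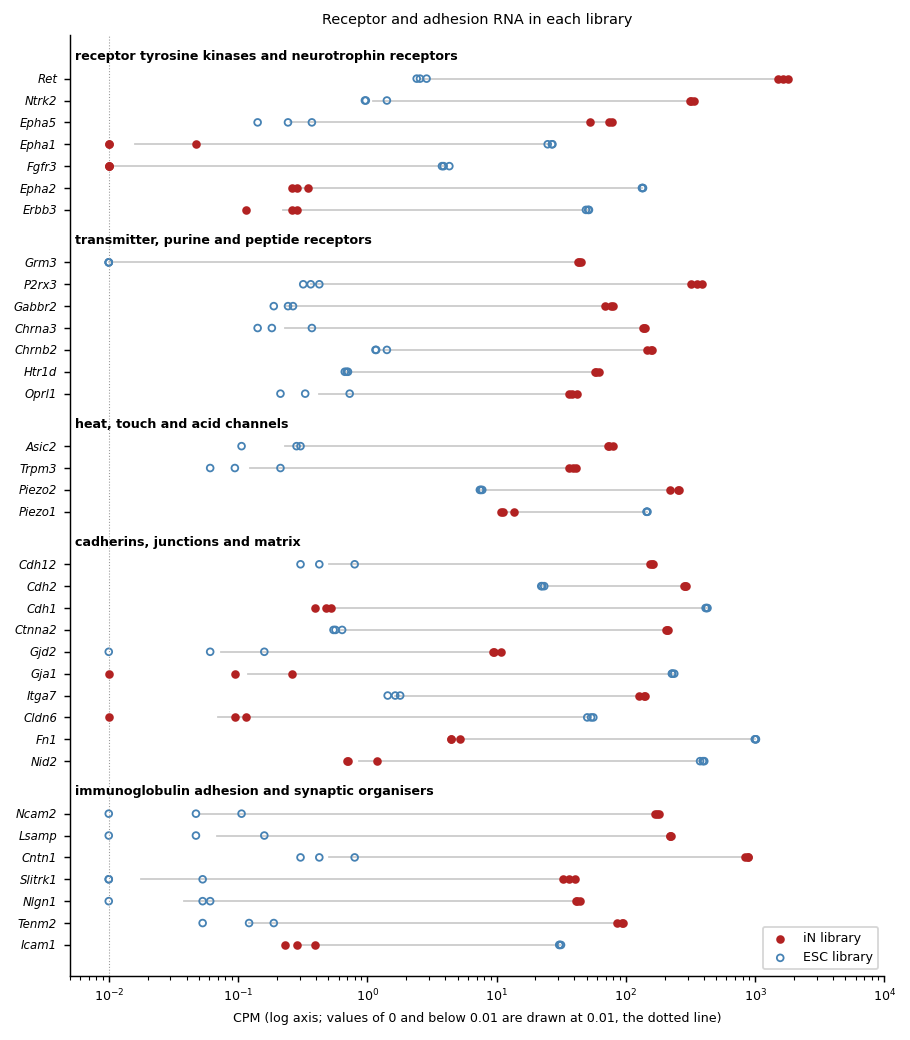
CPM of named receptors, channels, adhesion and matrix genes in each library on a log axis, with filled red points for the 3 iN libraries and open blue points for the 3 ESC libraries; values of 0 and below 0.01 are drawn at 0.01. Related genes stand in opposite order, with Piezo2, Cdh2, Ctnna2 and Gjd2 to the right in iNs and Piezo1, Cdh1 and Gja1 to the left.

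Most genes of epithelial junctions fell. Of 45 tight junction genes, 29 were tested, 20 fell and 0 rose by at least 4-fold (median log2 fold change −4.73, or −4.27 with genes at 0 in a group set at their bound), and their summed level was 335 to 345 CPM in iNs, against 1627 to 1653 CPM in ESCs. Cldn6 had 0, 0.0953 and 0.116 CPM in iNs, against 56.1, 53.9 and 50.3 CPM in ESCs (log2 fold change −9.36 ± 0.20). Epcam, an epithelial adhesion protein, had 0.656, 0.572 and 0.348 CPM in iNs, against 152, 157 and 142 CPM in ESCs (log2 fold change −8.14 ± 0.12), and Cldn4 fell too (log2 fold change −8.03 ± 0.18). The adherens junction went the same way. Cdh1 (E-cadherin) had 0.394, 0.476 and 0.521 CPM in iNs, against 428, 414 and 421 CPM in ESCs (log2 fold change −9.79 ± 0.09). Every ESC library was far above the iN libraries in these genes. Of 17 catenins, plakins and desmosome genes, 9 fell and 3 rose by at least 4-fold. Dsp (desmoplakin) had 3.74, 4.72 and 3.82 CPM in iNs, against 179, 169 and 183 CPM in ESCs (log2 fold change −5.42 ± 0.09). The neuronal alpha-catenin Ctnna2 had 210.0, 212 and 206 CPM in iNs, against 0.567, 0.548 and 0.639 CPM in ESCs (log2 fold change 8.46 ± 0.09). The neuronal delta-catenin Ctnnd2 had 189, 199.7 and 196 CPM in iNs, against 8.56, 9.44 and 8.68 CPM in ESCs (log2 fold change 4.46 ± 0.06).

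Of 17 classical and type II cadherins, 10 rose and 2 fell by at least 4-fold. Several type II members, which mark neuron groups, rose. Cdh12 had 162, 154 and 158 CPM in iNs, against 0.425, 0.304 and 0.799 CPM in ESCs (log2 fold change 8.25 ± 0.13). Cdh6 had 101, 114 and 105 CPM in iNs, against 0.709, 0.731 and 0.692 CPM in ESCs (log2 fold change 7.22 ± 0.11). Cdh7 (log2 fold change 7.37 ± 0.14), Cdh18 (log2 fold change 7.03 ± 0.13) and Cdh22 (log2 fold change 6.43 ± 0.21) rose with them. Gap junction genes fell in 6 and rose in 4 of 11 tested, each at least 4-fold. Gja1 (connexin 43) had 0.263, 0.0953 and 0 CPM in iNs, against 229, 227 and 237 CPM in ESCs (log2 fold change −10.92 ± 0.17). Gjb5 (255-fold lower, 95% counting interval 86.8 to 1237), which epithelia use, was almost absent from iNs. Gjd2 (connexin 36), the main connexin of neurons, had 10.8, 9.39 and 9.50 CPM in iNs, against 0, 0.0609 and 0.160 CPM in ESCs (log2 fold change 6.99 ± 0.33).

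Genes of the basement membrane, which stem cell colonies deposit, fell. Of 24 laminin, nidogen and basement membrane genes, 16 fell and 2 rose by at least 4-fold (median log2 fold change −3.50), and the summed level was 384 to 439 CPM in iNs, against 4189.7 to 4219 CPM in ESCs. Nid2 had 1.18, 0.715 and 0.695 CPM in iNs, against 394, 404 and 375 CPM in ESCs (log2 fold change −8.85 ± 0.11). Perlecan (Hspg2) had 4.33, 5.91 and 5.27 CPM in iNs, against 441, 459 and 453 CPM in ESCs (log2 fold change −6.43 ± 0.09), and Lama5 fell too (log2 fold change −6.04 ± 0.08). The guidance-related Ntn4 rose (log2 fold change 3.36 ± 0.21). Integrins, which bind that matrix, fell in 12 and rose in 6 of 18 tested, with 8 and 4 past 4-fold. Their summed level was nevertheless higher in iNs, at 990 to 1026 CPM, against 744 to 785 CPM in ESCs. Itga5, the fibronectin receptor subunit, had 3.81, 2.38 and 2.14 CPM in iNs, against 68.6, 67.3 and 69.7 CPM in ESCs (log2 fold change −4.65 ± 0.13). Itga7, a laminin receptor subunit, had 126, 138 and 142 CPM in iNs, against 1.80, 1.64 and 1.44 CPM in ESCs (log2 fold change 6.37 ± 0.10), and Itga4 rose too (log2 fold change 5.82 ± 0.13). Proteoglycans were split, 12 higher and 8 lower by at least 4-fold of 25. Spock1 (testican 1) had 276, 289 and 275 CPM in iNs, against 0.425, 0.548 and 0.532 CPM in ESCs (log2 fold change 9.12 ± 0.10). Syndecan 4 (Sdc4) had 0.525, 0.429 and 0.116 CPM in iNs, against 55.3, 52.9 and 51.5 CPM in ESCs (log2 fold change −7.20 ± 0.18).

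Immunoglobulin adhesion molecules and synaptic organisers held many large rises. Of 39 immunoglobulin adhesion molecules, 29 rose and 2 fell by at least 4-fold (median log2 fold change 4.85), with a summed level of 5454 to 5857 CPM in iNs, against 501 to 502 CPM in ESCs. Cntn1 (contactin 1) had 830.0, 884 and 889 CPM in iNs, against 0.425, 0.304 and 0.799 CPM in ESCs (log2 fold change 10.70 ± 0.13). Ncam2 had 181, 167 and 173 CPM in iNs, against 0.0473, 0 and 0.106 CPM in ESCs (3248-fold higher, 95% counting interval 1111 to 15755), and Lsamp, of the limbic system, rose too (log2 fold change 11.47 ± 0.16). Cntn5 had no count in ESCs (at least 501-fold higher). Icam1, which leukocytes bind, had 0.394, 0.286 and 0.232 CPM in iNs, against 31.5, 30.6 and 30.7 CPM in ESCs (log2 fold change −6.66 ± 0.15). Of 52 synaptic organisers, 40 rose and 1 fell by at least 4-fold (median log2 fold change 3.92). Nlgn1 (neuroligin 1) had 40.8, 44.2 and 42.1 CPM in iNs, against 0, 0.0609 and 0.0532 CPM in ESCs (1199.7-fold higher, 95% counting interval 332 to 9912). Slitrk1 had 32.4, 40.6 and 36.5 CPM in iNs, against 0, 0 and 0.0532 CPM in ESCs (2082-fold higher, 95% counting interval 373 to 82285), and Tenm2 rose too (log2 fold change 9.45 ± 0.15). C1ql1, a secreted organiser, fell (93.9-fold lower, 95% counting interval 16.5 to 3748). Of 22 non-clustered protocadherins, 16 rose and 3 fell by at least 4-fold. Pcdh17 had 328, 336 and 329 CPM in iNs, against 4.63, 4.38 and 5.27 CPM in ESCs (log2 fold change 6.11 ± 0.07). Fat3 rose (log2 fold change 6.26 ± 0.08), while its relative Fat2 had 0, 0.0476 and 0 CPM in iNs, against 18.7, 18.6 and 19.3 CPM in ESCs (1009.7-fold lower, 95% counting interval 181 to 39918).

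Motor proteins divided by role. All 14 mitotic kinesins fell at least 4-fold (median log2 fold change −6.0), and of 32 transport kinesins and dynein subunits 18 rose and 1 fell by at least 4-fold (median 2.59). Kif11, which pushes spindle poles apart, had 1.12, 1.38 and 1.51 CPM in iNs, against 275, 303 and 278 CPM in ESCs (log2 fold change −7.72 ± 0.10). Kif1a, the carrier of synaptic vesicle precursors, had 1951, 2299.9 and 2395 CPM in iNs, against 45.6, 40.5 and 41.1 CPM in ESCs (log2 fold change 5.71 ± 0.10). Kif5a, a conventional kinesin of neurons, had 1117, 1272 and 1228 CPM in iNs, against 13.7, 12.5 and 12.9 CPM in ESCs (log2 fold change 6.53 ± 0.08). Dync1i1, the neuronal dynein intermediate chain, rose too (log2 fold change 7.58 ± 0.11). Kif1c, used in other cells for Golgi and adhesion traffic, fell (log2 fold change −2.49 ± 0.07). Of 17 tubulins, 6 rose and 3 fell by at least 4-fold. Tubb4a rose (log2 fold change 5.66 ± 0.09). Tubb2a had 947, 1051 and 1012 CPM in iNs, against 17.7, 18.4 and 18.6 CPM in ESCs (log2 fold change 5.78 ± 0.07), though its reads are shared with the near-identical Tubb2b. Tuba3a had no count in iNs (at least 64.2-fold lower), and its near-identical copy Tuba3b may share its reads. Of 33 microtubule-associated proteins and stathmins, 21 rose and 2 fell by at least 4-fold. Stmn3 had 392, 417 and 373 CPM in iNs, against 1.23, 1.28 and 2.02 CPM in ESCs (log2 fold change 8.02 ± 0.12), Tppp3 rose (log2 fold change 5.92 ± 0.08) and Map7d3 fell (log2 fold change −3.74 ± 0.15).

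Of 19 intermediate filament genes, 10 fell and 7 rose by at least 4-fold. Nefm, the middle neurofilament chain, had 1859.5, 2165 and 2182 CPM in iNs, against 20.8, 21.4 and 21.6 CPM in ESCs (log2 fold change 6.60 ± 0.09). Prph (peripherin), the filament of peripheral neurons, had 224, 269 and 298 CPM in iNs, against 2.98, 3.96 and 3.83 CPM in ESCs (log2 fold change 6.21 ± 0.13). The keratins Krt8 and Krt17 stood the other way round. Krt8 had 0.656, 1.25 and 0.290 CPM in iNs, against 123, 125 and 134 CPM in ESCs (log2 fold change −7.37 ± 0.18), and Krt17 had no count in iNs (at least 191-fold lower).

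Of 18 granin and dense-core vesicle genes, 18 rose, 17 of them at least 4-fold (median log2 fold change 5.93). Scg2 (secretogranin 2) had 105, 113 and 121 CPM in iNs, against 0, 0.183 and 0.160 CPM in ESCs (log2 fold change 9.96 ± 0.20). Scg5, a chaperone of a prohormone convertase, had 89.5, 92.6 and 87.9 CPM in iNs, against 0.142, 0 and 0.106 CPM in ESCs (log2 fold change 9.88 ± 0.18). Cadps, which primes these vesicles, had 344, 343 and 372 CPM in iNs, against 2.32, 1.83 and 1.54 CPM in ESCs (log2 fold change 7.52 ± 0.10). Their cargo genes changed less uniformly. Of 38 neuropeptide and neurexophilin precursors, 13 were tested, 7 rose and 2 fell by at least 4-fold, and the summed level was 70.4 to 98.9 CPM in iNs, against 87.3 to 98.2 CPM in ESCs. Nts (neurotensin) had 28.0, 30.5 and 44.8 CPM in iNs, against 0.0473, 0.183 and 0.106 CPM in ESCs (log2 fold change 8.25 ± 0.33). Gal (galanin) had 16.0, 17.6 and 24.3 CPM in iNs, against 0.284, 0.426 and 0.319 CPM in ESCs (log2 fold change 5.81 ± 0.25). The sums were alike although the peptides were not. Trh, the precursor of thyrotropin-releasing hormone, accounted for most of the ESC sum, with 0.0656, 0 and 0.0579 CPM in iNs, against 86.9, 77.6 and 76.4 CPM in ESCs (2158-fold lower, 95% counting interval 597 to 17821). Of 21 synaptotagmins and relatives, 13 rose and 1 fell by at least 4-fold (2 fell without iN library C). Syt2, a fast calcium sensor of release, had 136, 155 and 159 CPM in iNs, against 0.520, 0.670 and 0.586 CPM in ESCs (log2 fold change 7.98 ± 0.12), and Syt4 rose too (log2 fold change 7.01 ± 0.10). Of 39 SNARE and vesicle fusion genes, 23 rose and 5 fell by at least 4-fold. Rab3c had 247, 240.1 and 229 CPM in iNs, against 0.0473, 0 and 0.160 CPM in ESCs (log2 fold change 11.58 ± 0.16). Cplx1 (complexin 1) had 175, 208 and 190.3 CPM in iNs, against 1.47, 1.10 and 1.54 CPM in ESCs (log2 fold change 7.11 ± 0.11). Unc13a (Munc13-1), which primes synaptic vesicles, rose (log2 fold change 6.40 ± 0.09). The general SNAREs Vamp8 (log2 fold change −4.63 ± 0.47) and Stx3 (log2 fold change −3.18 ± 0.08) fell.

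Genes of cell death and DNA repair fell more often than they rose. Of 34 cell death genes, 10 fell and 4 rose by at least 4-fold. Casp8, the initiator of receptor-driven death, had 0 CPM in each iN library, against 2.69, 2.68 and 2.66 CPM in ESCs (at least 47.8-fold lower). The BH3-only killers parted. Bcl2l11 (Bim) had 3.35, 4.19 and 3.82 CPM in iNs, against 75.6, 78.5 and 80.7 CPM in ESCs (log2 fold change −4.35 ± 0.09), and Pmaip1 (Noxa) fell too (log2 fold change −4.45 ± 0.09). Hrk, of neurons, had 97.8, 106 and 108 CPM in iNs, against 1.18, 0.852 and 0.799 CPM in ESCs (log2 fold change 6.75 ± 0.11). The protector Bcl2l2 (Bcl-w) rose (log2 fold change 2.99 ± 0.08). Of 52 DNA repair and telomere genes, 49 fell, 2 rose and 1 was not called, with 28 lower and 0 higher by at least 4-fold. Fancd2, of crosslink repair, had 0.328, 0.476 and 0.406 CPM in iNs, against 88.1, 90.7 and 81.8 CPM in ESCs (log2 fold change −7.70 ± 0.12). Lig4, of end joining, which needs no sister chromatid, had 25.0, 21.9 and 24.7 CPM in iNs, against 17.1, 13.6 and 14.7 CPM in ESCs (log2 fold change 0.65 ± 0.10). The iN and ESC libraries did not overlap in any of these genes.

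All 87 cytosolic ribosomal protein genes tested fell, 27 of them at least 4-fold (median log2 fold change −1.84), and their summed level was 12751 to 14563 CPM in iNs, against 44979 to 49273 CPM in ESCs. These genes have many processed copies, so the counts of a member are uncertain. Proteasome genes fell by little, 31 of 41 called lower and 4 higher, with a median of −0.36. The immunoproteasome subunits Psmb8 (log2 fold change −3.38 ± 0.31) and Psmb10 (log2 fold change −2.18 ± 0.11) were the 2 that fell at least 4-fold. Of 42 lysosomal and autophagy genes, 26 rose and 10 fell, with 7 and 2 past 4-fold. Ulk2, a kinase that starts autophagy, had 204, 187 and 196 CPM in iNs, against 4.87, 5.78 and 5.96 CPM in ESCs (log2 fold change 5.15 ± 0.08). Gabarapl1 had 159, 194 and 194 CPM in iNs, against 12.8, 9.38 and 11 CPM in ESCs (log2 fold change 4.03 ± 0.11). Tfeb, a master factor of lysosomal genes, fell (log2 fold change −3.29 ± 0.12). Of 28 heat shock genes, 5 fell and 4 rose by at least 4-fold. Hspb1 (Hsp25) had 2.09, 2.05 and 2.38 CPM in iNs, against 129.8, 150.2 and 135 CPM in ESCs (log2 fold change −5.99 ± 0.10). Hspa12a, an Hsp70 relative of brain, had 539, 568 and 560.3 CPM in iNs, against 3.73, 2.98 and 3.57 CPM in ESCs (log2 fold change 7.33 ± 0.08). Interferon and antigen presentation genes fell in 12 and rose in 3 of 30 by the 4-fold rule. Ifitm3, an antiviral membrane protein that stem cells carry without infection, had 0.197, 0.0953 and 0.174 CPM in iNs, against 119, 120.0 and 118 CPM in ESCs (log2 fold change −9.57 ± 0.12). Irf1 had 1.12, 1.86 and 2.38 CPM in iNs, against 60.5, 62.0 and 58.9 CPM in ESCs (log2 fold change −5.06 ± 0.14). Irf2 had 18.6, 17.2 and 17.8 CPM in iNs, against 1.23, 0.731 and 0.905 CPM in ESCs (log2 fold change 4.19 ± 0.16).

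Many of these exchanges were between paralogs, so 35 pairs of related genes were set side by side per length, in transcripts per 1000000 over protein-coding genes (TPM). The measure is log2 of the ratio of TPM + 0.01, the gene named first over its relative. Many of the genes named first are neuronal, but others, such as Hk1, Ldhb and Ezh1, are not particular to neurons. The ratio was higher in iNs, with no overlap, in 34 of the pairs. For single genes, 89.6% of all those tested had no overlap in either direction. In 21 pairs it crossed 0, so that the gene named first was the more abundant of the pair in iNs and the less abundant in ESCs. The gene named first rose in 31 pairs. Its relative fell in 27 and rose in 8. The pairs were chosen with earlier results of these data known, and their direction is a description.

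The cadherin pair Cdh2 over Cdh1 had ratios of 9.50, 9.30 and 9.17 in iNs, against −4.12, −4.06 and −4.01 in ESCs. For the fusion proteins Snap25 over Snap23 the ratios were 6.22, 5.99 and 6.43 in iNs, against −6.84, −6.70 and −4.91 in ESCs. Ptbp2 over Ptbp1, splicing repressors known to replace each other in neurons, gave 2.97, 3.26 and 3.32 in iNs, against −2.75, −2.71 and −2.69 in ESCs. The hexokinases Hk1 over Hk2 gave 6.54, 6.82 and 7.26 in iNs, against −1.32, −1.43 and −1.30 in ESCs. In these pairs the sign differed between the cell types in every library. Eno2 over Eno1 stayed below 0, with −1.05, −1.35 and −1.22 in iNs, against −9.26, −9.75 and −9.21 in ESCs, since Eno1 RNA was still the more abundant in iNs. The exception in direction was Atp1b2 over Atp1b1, with −6.11, −5.70 and −6.10 in iNs, against −2.35, −2.61 and −2.50 in ESCs, where the widely used Atp1b1 had 472, 472 and 502 CPM in iNs, against 57.4, 58.6 and 60.9 CPM in ESCs (log2 fold change 3.03 ± 0.06). Slc2a3 over Slc2a1 gave 3.58, 3.48 and 3.94 in iNs, against −0.11, −0.07 and −0.24 in ESCs, although both glucose transporters fell (log2 fold change −1.75 ± 0.06 for Slc2a3 and −5.44 ± 0.12 for Slc2a1). Slc12a5 over Slc12a2, the chloride exporter over the importer, stayed below 0, with −2.82, −2.54 and −2.56 in iNs, against −4.94, −5.87 and −6.59 in ESCs.

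**Figure D4:**
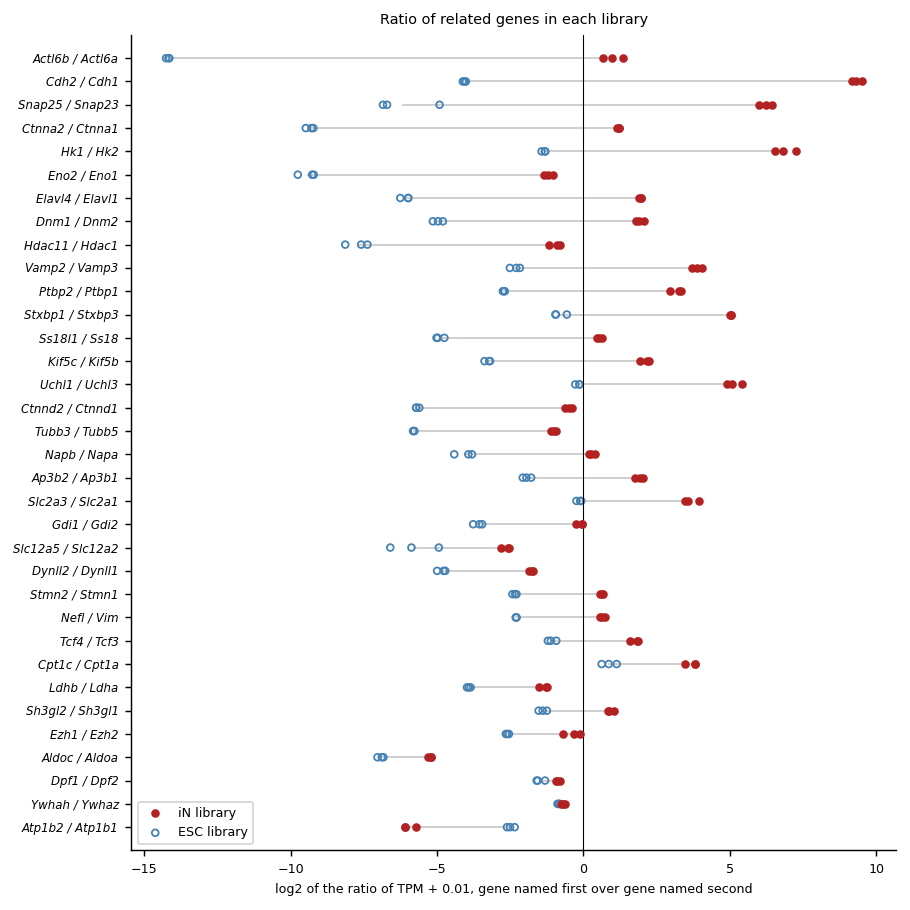
Log2 ratio of TPM + 0.01, gene named first over gene named second, for 34 of the 35 pairs of related genes in each library, with filled red points for the 3 iN libraries and open blue points for the 3 ESC libraries. The iN points lie to the right of the ESC points in 33 of the pairs drawn and the groups lie on opposite sides of 0 in 20, and the lowest row, Atp1b2 over Atp1b1, runs the other way.

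Residual stem cell and non-neural RNA in iNs was read from marker lists of other cells. The summed level of 24 naive and primed pluripotency markers was 99.8 to 115 CPM in iNs, against 4190.4 to 4335 CPM in ESCs. Of these, 2 were at 0 in all iN libraries, namely Prdm14 and Fgf4, 23 fell at least 4-fold and 1 rose. The riser was Tbx3, with 71.2, 82.3 and 71.1 CPM in iNs, against 45.0, 47.3 and 44.7 CPM in ESCs (log2 fold change 0.72 ± 0.07), a gene that neurons and many organs also use. The next largest parts of the iN sum were Tfcp2l1, with 8.34, 8.24 and 7.07 CPM in iNs, against 317, 308 and 300.4 CPM in ESCs (log2 fold change −5.29 ± 0.07), and Dppa4, with 6.29, 6.07 and 5.38 CPM in iNs, against 77.5, 68.6 and 71.4 CPM in ESCs (log2 fold change −3.62 ± 0.09). Most of the iN sum was thus Tbx3, and RNA of other pluripotency markers, such as Tfcp2l1 and Dppa4, was present at a low level in every iN library. For 20 markers of dividing cells the sum was 59.2 to 66.2 CPM in iNs, against 4791 to 4919 CPM in ESCs. All 20 fell at least 4-fold and none was at 0 in iNs, the largest parts of the iN sum being Mcm6, with 18.3, 21.7 and 19.3 CPM in iNs, against 355, 364 and 354 CPM in ESCs (log2 fold change −4.17 ± 0.07), and Pcna, with 16.8, 16.5 and 14.5 CPM in iNs, against 192, 195 and 179 CPM in ESCs (log2 fold change −3.57 ± 0.07). Whether these remnants came from a few undifferentiated cells or from low levels in many was not tested.

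Summed marker RNA of lineages that pluripotent cultures can form in passing was higher in the ESC libraries. Whether it came from such cells or from the ESCs themselves was not tested. Of 17 trophoblast markers the sum was 5.19 to 7.82 CPM in iNs, against 285 to 295 CPM in ESCs. Of 13 tested, 12 fell and 1 rose by at least 4-fold, and Cdx2, Elf5, Tpbpa and Plac1 were at 0 in iNs, 1 of them in ESCs too. The riser, Psg16, had 2.63, 2.86 and 2.61 CPM in iNs, against 0.378, 0.426 and 0.532 CPM in ESCs (log2 fold change 2.59 ± 0.25). Primitive endoderm markers (18) summed to 64.7 to 78.3 CPM in iNs, against 560.1 to 572 CPM in ESCs, and 9 of 10 tested fell, with Sox17 and Apoa1 among those at 0 in iNs. Most of the iN sum was the matrix genes Lamb1 (log2 fold change −2.66 ± 0.10) and Col4a1 (log2 fold change −1.78 ± 0.11). Pdgfra rose in that list, with 4.53, 5.91 and 5.68 CPM in iNs, against 1.09, 1.16 and 0.799 CPM in ESCs (log2 fold change 2.41 ± 0.20). Mesoderm and muscle markers (22) summed to 2.95 to 3.48 CPM in iNs, against 37.5 to 40.1 CPM in ESCs, with 8 of 9 tested lower and 9 at 0 in iNs, among them T, Myod1, Myh6 and Actc1. Tnnt1 was not called, with 1.25, 1.86 and 1.68 CPM in iNs, against 1.89, 1.64 and 1.92 CPM in ESCs (log2 fold change −0.17 ± 0.23, adjusted p = 0.474, edgeR quasi-likelihood test, Benjamini-Hochberg adjustment). The T-box gene T and the heart genes Myh6 and Actc1 were thus not detected in iNs at this depth. Germ cell and 2-cell-stage markers (22) summed to 52.6 to 59.4 CPM in iNs, against 183 to 197 CPM in ESCs, and 14 of 16 tested fell, with Prdm14, Zscan4c and Stra8 among the 8 at 0 in iNs. Most of the iN sum was Tdrd7, with 36.0, 44.4 and 40.1 CPM in iNs, against 2.36, 2.74 and 2.77 CPM in ESCs (log2 fold change 3.94 ± 0.12).

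Endothelial markers (10) summed to 1.76 to 2.14 CPM in iNs, against 78.2 to 84.5 CPM in ESCs, with 7 of 7 tested lower and Cldn5, Tie1 and Emcn at 0 in iNs, 1 of them in ESCs too. Microglia and blood markers (18) summed to 8.14 to 8.85 CPM in iNs, against 50.5 to 53.6 CPM in ESCs, 3 of 4 tested fell, and 6 were at 0 in iNs, among them C1qa, Tyrobp and Gata1. In ESCs 5 were at 0, and 3 were at 0 in both groups. For markers of neural crest, Schwann cells and melanocytes (16) the sum was 4.14 to 6.60 CPM in iNs, against 103 to 107 CPM in ESCs, 5 of 8 tested fell, and Sox10, Dct and Tyr were at 0 in iNs, 1 of them in ESCs too. All 3 of these lists were lower in every iN library. Liver, gut, lung and kidney epithelium markers (20) summed to 19 to 23.1 CPM in iNs, against 22.9 to 25.0 CPM in ESCs, with 5 of 6 tested lower and 9 at 0 in iNs, among them Fgb, Fabp1 and Krt5. In ESCs 6 were at 0, and 4 were at 0 in both groups. Nearly all of the iN sum of this list was Cdhr1, a photoreceptor protein. It had 18.1, 22.3 and 22.2 CPM in iNs, against 6.76, 8.34 and 6.60 CPM in ESCs (log2 fold change 1.54 ± 0.12). Fibroblast and smooth muscle markers (16) summed to 77.7 to 91.2 CPM in iNs, against 214 to 229 CPM in ESCs, with Lum at 0 in iNs. Thy1 is also a neuronal surface protein. In iNs that sum was mostly Thy1, with 34.2, 46.9 and 44.7 CPM in iNs, against 4.77, 4.32 and 4.85 CPM in ESCs (log2 fold change 3.17 ± 0.13), and Postn (periostin), with 30.2, 29.2 and 29.3 CPM in iNs, against 0.804, 0.852 and 1.06 CPM in ESCs (log2 fold change 5.02 ± 0.13). Of 14 tested, 8 fell at least 4-fold, and these included the collagens and most contractile genes.

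Glial and progenitor lists were mixed. Of 15 astrocyte and ependymal markers, 8 were tested, 4 rose and 2 fell by at least 4-fold, and the sum was 88.3 to 91.6 CPM in iNs, against 286 to 293 CPM in ESCs. Gfap, Gjb6, Ccdc153 and Tmem212 were at 0 in iNs, the last pair in ESCs too. Most of the iN sum was Slc1a2 (Glt1), with 67.2, 69.1 and 62.7 CPM in iNs, against 0.520, 0.304 and 0.426 CPM in ESCs (log2 fold change 7.26 ± 0.13), a glutamate transporter that neurons also use, whereas most of the ESC sum was Gja1. Of 14 oligodendrocyte lineage markers the sum was 102 to 107 CPM in iNs, against 120.5 to 124 CPM in ESCs, and 4 of 8 tested rose and 4 fell. Sox10 and Mag were at 0 in iNs, while Mbp, a myelin protein with other transcripts in neurons, had 38.9, 37.5 and 35.3 CPM in iNs, against 9.55, 6.39 and 7.77 CPM in ESCs (log2 fold change 2.22 ± 0.12), and Myrf fell (log2 fold change −2.31 ± 0.09). Members of the oligodendrocyte list therefore moved in opposite directions. Neural progenitor markers (17) summed to 759 to 791 CPM in iNs, against 719.7 to 744 CPM in ESCs, with 8 lower and 2 higher by at least 4-fold of 14 tested and Pax7 at 0 in iNs. The close sums came from different genes. In iNs most of the sum was Vim, with 608, 607 and 573 CPM in iNs, against 158, 164 and 161 CPM in ESCs (log2 fold change 1.89 ± 0.05), and Dach1, with 121, 123 and 126 CPM in iNs, against 0.804, 0.548 and 0.692 CPM in ESCs (log2 fold change 7.47 ± 0.10).

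**Figure D5:**
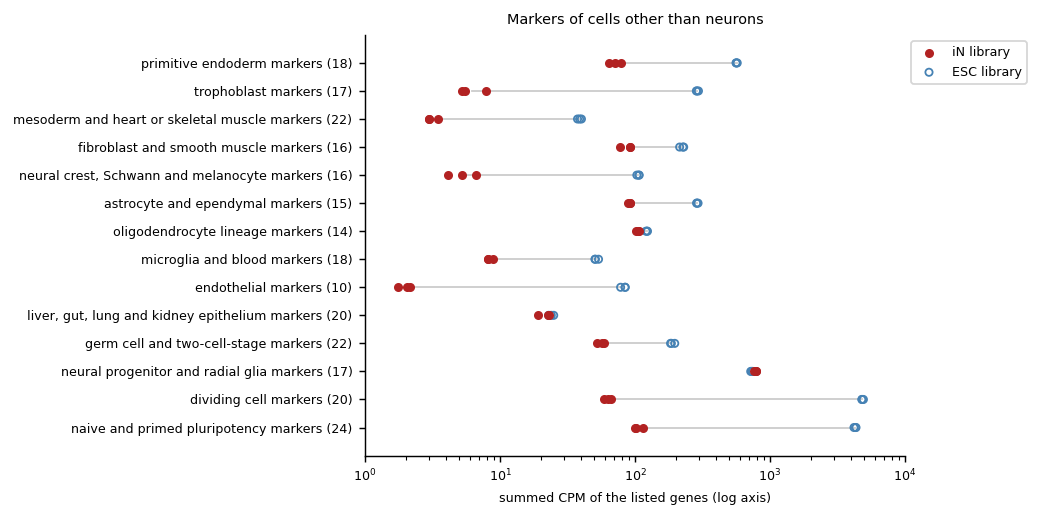
Summed CPM of the listed markers of cells other than neurons in each library on a log axis, with the number of listed genes in parentheses, filled red points for the 3 iN libraries and open blue points for the 3 ESC libraries. Markers of dividing cells, pluripotency, trophoblast and endothelium lie far to the left in iNs, and those of oligodendrocytes and neural progenitors lie close together.

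Over all genes, the rule for naming picked 15 genes at each end of the scale. Cntnap5a, of the neurexin family, had 84.2, 78.0 and 73.1 CPM in iNs, against 0 in each ESC library (at least 1469-fold higher). Ppp1r1c, an inhibitor of a protein phosphatase, had 219, 216 and 211 CPM in iNs, against 0, 0 and 0.0532 CPM in ESCs (12124-fold higher, 95% counting interval 2176 to 478900.0). Kcnk9, a leak potassium channel, had 35.2, 43.5 and 41.8 CPM in iNs, against 0 in each ESC library (at least 763-fold higher), and no ESC library held a count of Cacng2 (stargazin), which carries AMPA receptors to synapses (at least 678-fold higher), or of Ppargc1a, a coactivator that drives mitochondrial genes (at least 666-fold higher). No overlap between the groups was part of the rule that picked these genes. At the other end Gtsf1l had 0 CPM in each iN library, against 26.9, 23.3 and 27.2 CPM in ESCs (at least 463-fold lower). Tcl1, a kinase cofactor of stem cells, had 0 CPM in each iN library, against 14.9, 16.0 and 15.9 CPM in ESCs (at least 277-fold lower). No iN library held a count of Gpa33, of gut epithelium (at least 271-fold lower), Emp1, an epithelial membrane protein (at least 243-fold lower), or Slc28a1, a nucleoside transporter (at least 331-fold lower) either.

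Per length, the most abundant protein-coding RNA in iNs was Tuba1a, the alpha-tubulin of developing neurons, with 7042 ± 304 TPM in iNs, against 416 ± 26.5 TPM in ESCs (SD, n = 3 each). Uchl1, a deubiquitinase of neurons, had 2475 ± 74.1 TPM in iNs, against 154 ± 4.81 TPM in ESCs. Eef1a1, a translation factor, led in ESCs, with 5779 ± 269 TPM in iNs, against 10284 ± 227 TPM in ESCs. The 100 most abundant genes took 17.4 to 18.1% of the protein-coding TPM in iNs, against 29.6 to 29.99% in ESCs. At least 1 TPM in every library was reached by 12053 protein-coding genes in iNs and by 11910 in ESCs, of which 10605 were shared. Of genes at that level in 1 cell type, 168 of the iN genes stayed below 0.1 TPM in ESCs, and 232 of the ESC genes stayed below 0.1 TPM in iNs. Change was not universal. Of 1895 genes that were not called, 897 had a 95% interval of the log2 fold change within −0.5 to 0.5. The most abundant of these included Actg1, a cytoskeletal actin, with 2484, 2478 and 2185 CPM in iNs, against 2195, 2318 and 2301 CPM in ESCs (log2 fold change 0.07 ± 0.06, adjusted p = 0.325, edgeR quasi-likelihood test, Benjamini-Hochberg adjustment). Ywhae, a 14-3-3 adaptor, had 669, 671 and 624 CPM in iNs, against 684, 668 and 670.3 CPM in ESCs (log2 fold change −0.04 ± 0.05, adjusted p = 0.444, edgeR quasi-likelihood test, Benjamini-Hochberg adjustment). In both genes the iN and ESC libraries overlapped.

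The same comparison in the deletion genotype, which shares no library with this one, gave calls for 44.6% of 17524 genes tested as higher and 44.9% as lower in iNs. Of the 15124 genes called in the control libraries and tested there, 14340 were called in the same direction (94.8%) and 82 in the opposite one. Of 6778 genes changed at least 4-fold in the control libraries, 6192 were so in both (91.4%), and 0 were so in opposite directions. The deletion cells come from the same kind of culture, so this count is a repeat in other libraries and not in another system.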

How the data were processed

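Total RNA from TRIzol was treated with DNase, 400 ng was depleted of rRNA with the KAPA RNA HyperPrep RiboErase kit, and libraries were sequenced as 75-base pairs on a NextSeq 500, per the labels' protocols. Tools listed, without roles, in the submitters' processing notes are RSEM 1.2.30, STAR 2.4.1d, SAMtools, DESeq2 and cutadapt 1.4.2, and the build is mm10. The annotation release and the strand setting are not given in the sources used here. The authors deposited 1 RSEM table per library, whose columns, per the file headers, hold expected counts, posterior mean counts and transcripts per 1000000 (TPM) for each gene. Expected counts divide ambiguous reads among genes, so members of near-identical families share uncertainty.

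From these files, the expected counts, rounded to integers, were filtered with edgeR at a minimum count of 10. They were scaled by TMM and tested with edgeR 4.0.16 (quasi-likelihood, limma 3.58.1, R 4.3.3) over the 6 control libraries, with Benjamini-Hochberg adjustment over all 17247 genes and a threshold of 0.05. CPM were computed with the TMM-scaled library sizes. Deposited TPM were rescaled over RefSeq protein-coding genes without the mitochondrial ones, because 7S RNAs took 31.1 to 37.2% of TPM in iNs, against 12.1 to 15.3% in ESCs, and protein-coding genes 29.3 to 35.0%, against 38.9 to 41.9%. Symbols were found for 52403 of 52636 gene entries, and 74 symbols were shared by several. Replicates of a group correlated at 0.990 to 0.992 (Pearson, log2 CPM) and differed by more than counting noise, so none was a copy. The counting intervals and lower bounds cover counting error only.

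The groups, the 93 gene lists and the 35 pairs were chosen with earlier results of these data known. Genes are named by rule: the 15 largest changes each way among called genes whose groups did not overlap and whose mean log2 CPM reached 2 (Gm and Rik symbols left out), the 15 of highest TPM per group, up to 6 called members per list with the largest change and a mean log2 CPM reaching 0, plus up to 2 that moved against the list, both members of each pair, the 10 most abundant genes that were not called and had a 95% interval within 0.5 of 0, for other cell types up to 4 members of highest CPM in iNs, and Mirg, Meg3, Rian and Neurog2. Some genes picked by the rule, and 1 of the pairs, are not reported here. The rule by TPM was applied to protein-coding genes. Markers below the count filter are given by level. Promoter sequences are RefSeq's for GRCm38.p6. Alternatives were DESeq2 size factors and its Wald test (1.42.0), library totals, no filter, posterior mean counts, no mitochondrial, 7S or rRNA-like genes, all 12 RNA libraries in 1 fit, a prior count of 1, a replicate block, and each library left out. The fit was tested on simulated counts of 16805 genes, of which 100 were changed 2-fold and 100 were changed 4-fold. It recovered 99% and 100% of these, with 21 false calls among the others. Far fewer genes changed there than were called in these data, so the simulation does not test the scaling.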

Additional observations from a re-analysis of the deposited data

How the results depend on the processing

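Under the 15 alternatives the number of genes higher in iNs lay between 7327 (DESeq2 Wald test) and 8568 (no filter on low counts), and the number lower between 7538 and 9545 under the same alternatives. The number at least 4-fold higher lay between 3541 (a prior count of 1) and 4458 (no filter), and the number at least 4-fold lower between 3122 (library totals) and 4714 (no filter). Leaving out 1 library gave 7542 to 7715 genes higher and 7674 to 7966 lower. In the deletion libraries the share of control calls repeated was 94.8%, and 91.4% for changes of at least 4-fold in both. No call of the 688 named genes called reversed. Calls were lost under 1 or more alternatives in 4 genes whose log2 changes were 0.21 to 0.70 in size: Cntf, Calca (without ESC C, iN A or iN C), Tal1 (without ESC A or iN B) and Ezh1 (without ESC A, ESC C, iN A or iN C), each also under the DESeq2 Wald test, and Cntf and Ezh1 also with library totals, Cntf with posterior mean counts. Calls were gained in 7 genes: Actg1, Fbn1, Tfap2a and Kcnq1ot1 without iN C, mt-Nd1 and Ldhb without iN A, and Fasn without iN A or iN B and under 4 other alternatives. Of 2790 counts of list members changed at least 4-fold, 39 moved by over 1.5 times, in 23 lists, most of them with no filter on low counts (nuclear receptors 13 lower, against 6, and mesoderm and muscle markers 14, against 8). Among those that 1 library decided, the microglia and blood list had 4 members lower without iN A, iN C or ESC A, against 2, and the polyamine list 1 higher without iN B or ESC C, against 2. List medians over 0.5 in size turned sign for the proneural list (0.57, against −0.55 with all 12 libraries in 1 fit, and as given above without an iN library), for retinoid handling (−0.90, against 0.07 without iN library A) and for fibroblast growth factors (1.00, against −0.23 with no filter). Levels near 1 count per library limit what can be said of genes close to 0 in 1 group.

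With the replicate letter as a block (replicate block), 7426 genes were higher and 7628 lower in iNs, 3580 and 3196 of them at least 4-fold. Among named genes the block ended the calls of Cntf (adjusted p = 0.0929) and Ezh1 (adjusted p = 0.0822, both by the edgeR quasi-likelihood test with Benjamini-Hochberg adjustment) and no other. Libraries with the same letter did not deviate together (correlation of deviations from the group means −0.15 for A, −0.11 for B and 0.02 for C), and nothing in the labels says that the letters pair the samples. The iN libraries A and B each correlated best with an ESC library of another letter.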

Other observations

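Genes spread over long stretches of the genome were more often higher in iNs. By the span of the protein-coding gene in RefSeq, 62.7% of 504 genes over 300 kb were at least 4-fold higher in iNs and 5.16% at least 4-fold lower, with a median log2 fold change of 3.52. The shares were 34.4% and 12.2% of 1636 genes of 100 to 300 kb, 19.04% and 17.4% of 3960 genes of 30 to 100 kb, 14.9% and 19.4% of 4424 genes of 10 to 30 kb, and 17.8% and 20.1% of 3197 genes under 10 kb. Genes over 300 kb named in the report include Cntnap5a, Lsamp, Nlgn1, Ctnna2, Rbfox1 and Cdh12.

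Outside protein-coding genes, 42 of 666 pseudogenes were at least 4-fold higher and 181 at least 4-fold lower (6.31% and 27.2%). Of 601 long noncoding RNAs, 162 were at least 4-fold higher and 149 at least 4-fold lower. Of 35 snoRNAs, 0 were at least 4-fold higher and 10 at least 4-fold lower. By chromosome, 30.4% of 428 genes tested on chromosome 18 were at least 4-fold higher in iNs and 14.02% at least 4-fold lower, and the share higher lay between 16.6 and 23.5% on the other autosomes and X. Ribosomal-RNA-like entries took 2.01 to 2.44% of counts in iNs, against 10.3 to 11.1% in ESCs, and mitochondrial genes 3.42 to 4.38%, against 1.99 to 2.27%.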
